A study of Mus musculus with 6 samples.

Results

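The Pax7-negative fraction of induced myogenic progenitor cell (iMPC) cultures was compared with quiescent satellite cells (QSC). The comparison used 3 of the 6 libraries of the series: 1 library of Pax7-negative iMPCs, and 1 library each from QSC mouse 1 and QSC mouse 3. Every gene in the count tables was considered, and 11787 of 38924 genes reached 5 CPM (read counts relative to library size, scaled by TMM, the trimmed mean of M values) in the higher group. The question was how far the reporter-negative cells of a reprogrammed culture differ from the stem cell of resting muscle in their muscle, matrix, metabolic and signalling genes.

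iMPCs are muscle progenitors obtained by reprogramming mouse fibroblasts directly. Both embryonic fibroblasts and fibroblasts of the tail tip are named in the labels, which do not say which gave this library. Their title marks the cells as negative for a nuclear green fluorescent reporter of Pax7, so the sort took the cells in which that reporter was not seen. Expanded iMPC cultures were kept without doxycycline, the drug used during reprogramming, in a medium with forskolin at 5 µM, RepSox at 5 µM and a GSK3 inhibitor at 3 µM. Forskolin raises cAMP, RepSox blocks the TGF-beta type I receptor kinase, and inhibition of GSK3 stabilises beta-catenin as Wnt ligands do. QSC are labelled only by mouse number. Their strain, age, sex, muscle and sorting markers are not given by the labels, nor whether the reporter allele was carried by the QSC mice. The other libraries, Pax7-positive iMPCs, activated satellite cells and embryonic fibroblasts, entered the model fit and are cited only for a few genes.

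Satellite cells lie between the muscle fibre and its basement membrane and stay out of the cell cycle until injury. They carry the paired-box factors Pax7 and Pax3 and the early myogenic factor Myf5, and are held in quiescence by Notch, by the calcitonin receptor and by collagen around the fibre. On activation they divide, switch on Myod1 and then Myog, leave the cell cycle, fuse into fibres and fill them with sarcomeres. Cells isolated from tissue by enzymes also switch on immediate early and heat shock genes.

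The 3 libraries held 24446555 counts (Pax7-negative iMPC) and 29279686 and 29001640 counts (QSC mouse 1 and mouse 3). Across the 17116 tested genes, Pearson's r of log2 CPM was 0.792 and 0.743 between the iMPC library and QSC mouse 1 and mouse 3, and 0.940 between the mice, as a description across genes of 1 tissue or culture each. The QSC mice differed in Xist (0.0954 and 530.1 CPM) and in Y-linked Ddx3y (455 and 0.226 CPM). The spread between them, on which every standard error and p-value rests, therefore includes any difference of sex. The fit largely shared that spread across genes, so a standard error is not the gap between the mice in that gene alone. In bulk RNA, fewer cells of a type and less RNA per cell cannot be told apart. The iMPC group has no replicate: the model assumes that it varies like the pair of mice, and intervals on ratios of low counts cover counting error only.

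By edgeR's quasi-likelihood F test, adjusted after Benjamini-Hochberg (threshold 0.05, called "edgeR adjusted p" from here on), 2065 of 17116 genes (12.1%) were higher and 1124 (6.57%) lower in Pax7-negative iMPCs than in QSC. The split depended on the scaling. It was 2141 higher and 329 lower when libraries were scaled to their summed counts, and 1719 higher and 1653 lower with DESeq2. The median log2 fold change over all tested genes was 0.15 with TMM and 0.86 with summed counts. By size alone, at least 4-fold on log2 CPM with a prior count of 2 and 5 CPM in the higher group, 1889 of 11787 genes (16%) were higher and 1323 (11.2%) lower. Every gene called higher lay above both mice, and 1121 of the 1124 called lower lay below both (6.55% of tested genes). Of all tested genes, 46.8% lay above both mice and 37.1% below both, and among the 11787 genes with 5 CPM in the higher group edgeR called 14.9% higher and 9.01% lower. The mice themselves stood 4-fold or more apart in 242 (11.7%) of the genes called higher and in 67 (5.96%) of those called lower. Below, a gene said to have risen or fallen, or given with a log2 fold change and its standard error (SE), passed the edgeR test, and its adjusted p is printed for the first genes of each group. With 1 residual degree of freedom, a missed threshold does not show that levels were alike.

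**Figure D1:**
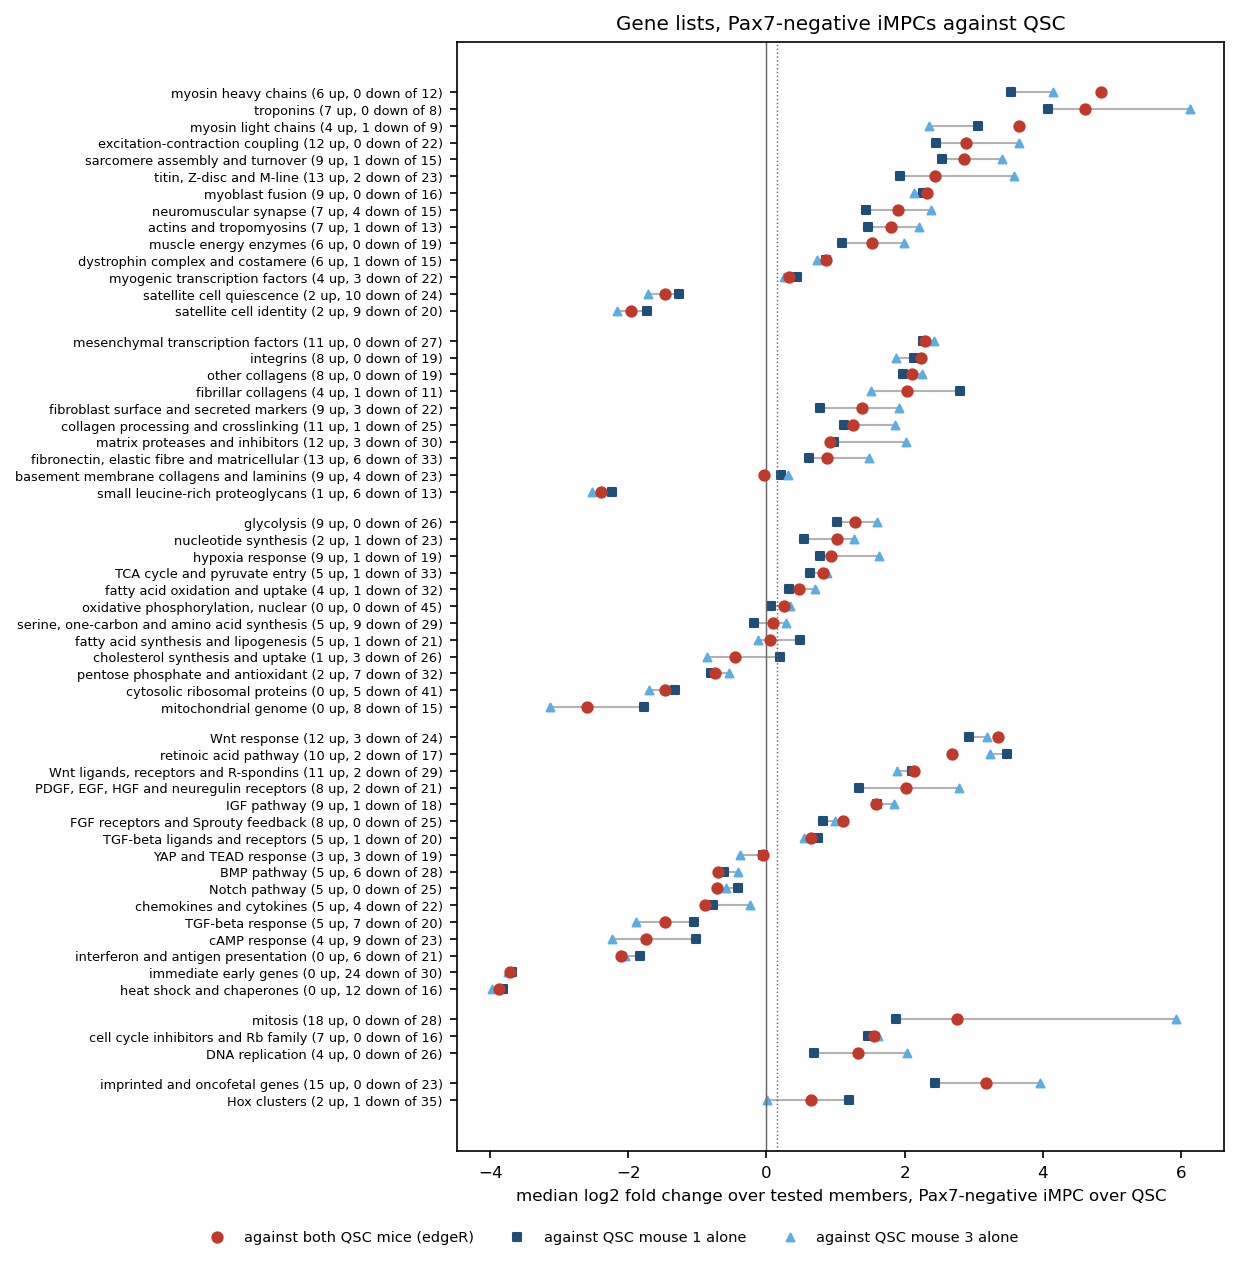
Median log2 fold change (Pax7-negative iMPC over QSC) of the muscle, matrix, metabolic, signalling, proliferation and fetal gene lists. The value against both mice is in red and that against mouse 1 and mouse 3 alone is a square and a triangle. The dotted line is the median of all tested genes, 0.15. The pluripotency list and the marker lists of other cells are not drawn. Myosin heavy chains, troponins, Wnt response and imprinted genes lie to the right of the line, and immediate early and heat shock genes to its left, against either mouse.

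The 67 lists held 1424 entries, of which 1379 were tested. Shares of all tested genes to set beside each list count were 12.1% higher and 6.57% lower. Among genes with 5 CPM in the higher group they were 14.9% and 9.01%. A list without a fall or without a rise is so by edgeR. At an unadjusted p under 0.05, the empty direction held 3 genes each for mesenchymal factors, Notch and FGF, 2 each for excitation-contraction coupling, glycolysis and imprinted genes, and 1 each for DNA replication, cell cycle inhibitors, endothelial markers and nuclear oxidative phosphorylation. DESeq2 put 2 genes there for FGF and for imprinted genes and 1 for mesenchymal factors, glycolysis, Notch and cell cycle inhibitors. The other such lists had none by either count.

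The gene lists of the satellite cell state stood lower in Pax7-negative iMPCs. Of 20 tested satellite cell identity genes, 9 fell and 2 rose (of all tested genes, 6.57% fell and 12.1% rose), with a median log2 fold change of -1.96 over the list. Pax3, the paired-box factor of migrating limb muscle precursors, stood at 0.203 CPM in the iMPC library and 20.5 and 55.7 CPM in the QSC mice, a log2 fold change of -7.52 ± 1.23 (SE, edgeR adjusted p = 4.79e-04). Msc, a basic helix-loop-helix factor of satellite cells, was at 17.9 CPM in iMPCs, against 402 CPM in mouse 1 and 123 CPM in mouse 3, a log2 fold change of -3.87 ± 0.85 (SE, edgeR adjusted p = 0.00432). Sdc4, a heparan sulphate proteoglycan of the satellite cell surface, was at 187 CPM in Pax7-negative iMPCs, against 2048 and 1903 CPM in QSC mouse 1 and mouse 3, a log2 fold change of -3.40 ± 0.80. The iMPC library lay below both mice in all 3 genes. Vcam1, an adhesion molecule used to sort satellite cells, stood at 105 CPM in the iMPC library and 1032 and 490.04 CPM in the QSC mice, a log2 fold change of -2.86 ± 0.76. Cd34, another sorting antigen, was at 49.3 CPM in iMPCs, against 249 CPM in mouse 1 and 172 CPM in mouse 3, a log2 fold change of -2.09 ± 0.67. Sdc3, also a surface proteoglycan of satellite cells, went the other way, with 309 CPM in Pax7-negative iMPCs, against 32.9 and 19.8 CPM in QSC mouse 1 and mouse 3, a log2 fold change of 3.55 ± 0.61. So did Fzd7, a Wnt receptor, with 41.8 CPM in the iMPC library and 8.53 and 5.25 CPM in the QSC mice, a log2 fold change of 2.60 ± 0.60. Cdh15 (M-cadherin) was at 488 CPM in iMPCs, against 313 CPM in mouse 1 and 555 CPM in mouse 3, inside the range of the mice, and Itga7 and Des, which satellite cells share with their differentiating progeny, did not pass the test either.

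The sort's own gene, Pax7, was at 6.25 CPM in Pax7-negative iMPCs, against 34.5 and 159.7 CPM in QSC mouse 1 and mouse 3, a log2 fold change of -3.96 ± 0.94 (SE, edgeR adjusted p = 0.00709), and at 37.8 CPM in the Pax7-positive iMPC library. The mice differ in it, and the log2 difference was -2.45 against mouse 1 and -4.66 against mouse 3. Its call was lost when libraries were scaled to their summed counts (edgeR adjusted p = 0.100), as was that of Met, the receptor of hepatocyte growth factor (edgeR adjusted p = 0.121). With that scaling 3 of the 20 identity genes were called lower. Myf5, which marks committed satellite cells, was at 1.05 CPM in the iMPC library and 84.2 and 124 CPM in the QSC mice.

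Genes known for quiescence showed both directions, with 10 of 24 tested members lower, 2 higher and a list median of -1.46. Calcr, the calcitonin receptor that holds satellite cells in their niche, had 1 count in the iMPC library (0.0338 CPM) and 55.9 and 151 CPM in the QSC mice, a level 3105-fold lower with a 95% counting interval of 557 to 122654. Chrdl2, a secreted BMP antagonist, stood at 0.844 CPM in the iMPC library and 604 and 643 CPM in the QSC mice, a log2 fold change of -9.52 ± 0.99 (SE, edgeR adjusted p = 9.79e-06). Bmp6, a BMP ligand, was at 1.96 CPM in iMPCs, against 104 CPM in mouse 1 and 144 CPM in mouse 3, a log2 fold change of -5.98 ± 0.86 (SE, edgeR adjusted p = 1.56e-04). All 3 were far below both mice. Gpx3, a secreted glutathione peroxidase, was at 428 CPM in Pax7-negative iMPCs, against 9166 and 13883 CPM in QSC mouse 1 and mouse 3, a log2 fold change of -4.75 ± 1.07. Gas1, a surface protein of growth arrest, rose, with 949 CPM in the iMPC library and 155 and 181 CPM in the QSC mice, a log2 fold change of 2.50 ± 0.61. Cdkn1c, a cyclin-dependent kinase inhibitor, rose too, with 3735 CPM in iMPCs, against 691 CPM in mouse 1 and 71.04 CPM in mouse 3, a log2 fold change of 3.29 ± 0.93. Mouse 1 carried more Cdkn1c than mouse 3, and the call was lost with summed counts (edgeR adjusted p = 0.0719). Notch effectors were not called. Heyl was at 107 CPM in Pax7-negative iMPCs, against 149 and 588 CPM in QSC mouse 1 and mouse 3.

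Muscle regulators past the progenitor stage were higher in part. Mef2c, the MADS-box factor that drives contractile genes together with Myod1 and Myog, stood at 163 CPM in the iMPC library and 5.20 and 1.54 CPM in the QSC mice, a log2 fold change of 5.60 ± 0.72 (SE, edgeR adjusted p = 5.13e-05). Hes6, an inhibitor of Hes1 that favours differentiation, was at 129 CPM in iMPCs, against 25.9 CPM in mouse 1 and 26.5 CPM in mouse 3, a log2 fold change of 2.30 ± 0.58 (SE, edgeR adjusted p = 0.0113). Tcf3, whose E proteins pair with the myogenic factors, was at 198 CPM in Pax7-negative iMPCs, against 43.3 and 46.2 CPM in QSC mouse 1 and mouse 3, a log2 fold change of 2.14 ± 0.57. These genes were above both mice, which were close to each other in Hes6 and Tcf3. Myog, the factor of terminal differentiation, was at 1358 CPM in the iMPC library and 189 and 4.07 CPM in the QSC mice, a log2 fold change of 3.82 ± 1.14. Against mouse 1 alone its log2 difference was 2.85 and against mouse 3 alone 8.36, since mouse 1 held far more Myog than mouse 3. The Myog call was lost with DESeq2 (DESeq2 adjusted p = 0.292) and with summed counts (edgeR adjusted p = 0.116).

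Other regulators fell or did not pass the test. Lbx1, a homeobox gene of limb muscle precursors, stood at 0.405 CPM in iMPCs, against 19.3 CPM in mouse 1 and 21.5 CPM in mouse 3, a log2 fold change of -5.64 ± 1.03 (SE, edgeR adjusted p = 0.00112). Prox1, a homeobox factor of muscle and lymphatic cells, was at 11.1 CPM in Pax7-negative iMPCs, against 82.2 and 164 CPM in QSC mouse 1 and mouse 3, a log2 fold change of -3.47 ± 0.76 (SE, edgeR adjusted p = 0.00448). The iMPC library lay below both mice in each, and the call of Prox1 was lost with summed counts. In all, 4 of 22 tested muscle transcription factors rose and 3 fell, and the list median was 0.33. Myf6 was not called.

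Genes of myoblast fusion were higher, with 9 of 16 tested members past the test, none lower, and a median of 2.33. Tmem8c (ENSMUSG00000009214), the membrane protein myomaker, stood at 253 CPM in the iMPC library and 30.04 and 0.226 CPM in the QSC mice, a log2 fold change of 4.07 ± 1.20 (SE, edgeR adjusted p = 0.0253). Gm7325 (ENSMUSG00000079471), the micropeptide myomixer that acts with it, was at 50.3 CPM in iMPCs, against 2.15 CPM in mouse 1 and 0 CPM in mouse 3, a log2 fold change of 5.55 ± 1.10 (SE, edgeR adjusted p = 0.00215). Myof, the ferlin myoferlin of fusing membranes, was at 100.1 CPM in Pax7-negative iMPCs, against 7.82 and 3.62 CPM in QSC mouse 1 and mouse 3, a log2 fold change of 4.13 ± 0.63. Mouse 1 again stood above mouse 3 in myomaker, and against each mouse alone its log2 difference was 3.07 and 9.70. Calls of Tmem8c and Gm7325 were lost with DESeq2 (adjusted p = 0.327 and 0.455) and with edgeR on summed counts (adjusted p = 0.126 and 0.0532). Cdon, a cell surface partner of cadherins in differentiation, was at 27.5 CPM in the iMPC library and 41.9 and 87.9 CPM in the QSC mice, and neither it nor its relative Boc passed the test.

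**Figure D2:**
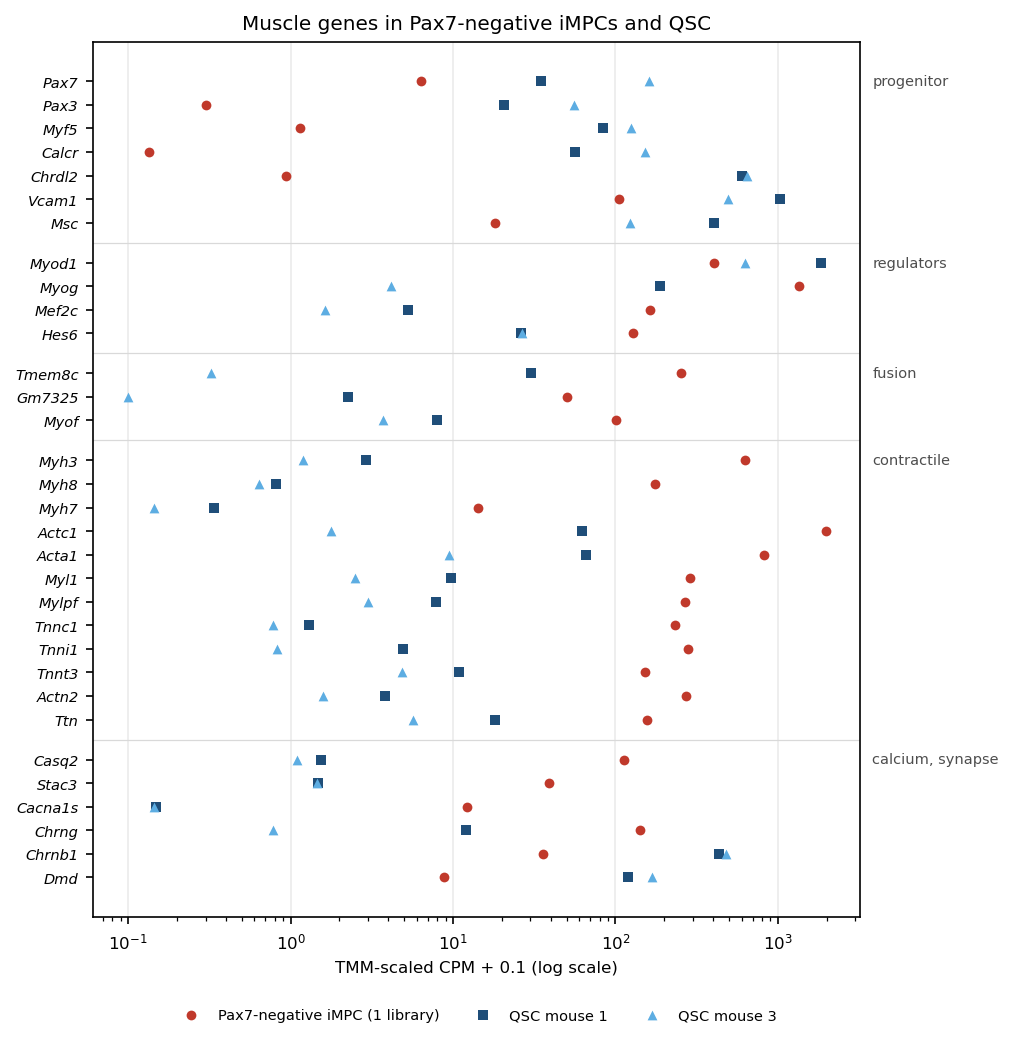
TMM-scaled CPM plus 0.1 on a log axis for muscle genes, grouped by role, with the Pax7-negative iMPC library as a red circle and QSC mouse 1 and mouse 3 as a dark square and a light triangle. The red circles lie left of the QSC symbols in progenitor genes such as Pax3 and Myf5 and right of them in Myh3, Tnnc1, Actn2 and Casq2.

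Contractile genes stood higher in Pax7-negative iMPCs. Among 12 tested myosin heavy chains, 6 rose and none fell. Myh3, the embryonic heavy chain, was at 629 CPM in iMPCs, against 2.81 CPM in mouse 1 and 1.09 CPM in mouse 3, a log2 fold change of 8.33 ± 0.84 (SE, edgeR adjusted p = 7.72e-06). Myh8, the perinatal heavy chain, was at 175 CPM in Pax7-negative iMPCs, against 0.715 and 0.543 CPM in QSC mouse 1 and mouse 3, a log2 fold change of 8.11 ± 0.71 (SE, edgeR adjusted p = 3.93e-06). Myh7, the slow heavy chain, was at 14.1 CPM in the iMPC library and 0.238 and 0.0452 CPM in the QSC mice, a log2 fold change of 6.61 ± 0.78. The adult fast chains Myh1, Myh2 and Myh4 also passed the test, with Myh1 at 86.1 CPM in iMPCs, against 3.48 CPM in mouse 1 and 1.36 CPM in mouse 3. Per length of transcript, in reads per kilobase scaled by library depth (RPKM) in the iMPC library, the order of levels was Myh3 at 127, Myh8 at 35.7, Myh1 at 17.8, Myh7 at 2.97, Myh4 at 1.70 and Myh2 at 0.598 RPKM. Developmental heavy chains thus held the top places in this 1 library, and with no replicate neighbours in the order have no spread to compare. The nonmuscle heavy chains Myh9 and Myh10 did not pass the test.

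Of 13 tested actin and tropomyosin genes, which build the thin filament, 7 rose and 1 fell. For the next 2 actins levels are in RPKM, which carries no TMM scaling and gives larger ratios over QSC than CPM. Actc1, cardiac alpha-actin, which embryonic skeletal muscle also expresses, was at 1617 RPKM in Pax7-negative iMPCs, against 30.4 and 0.867 RPKM in QSC mouse 1 and mouse 3. Its log2 fold change was 5.94 ± 1.19 (SE, edgeR adjusted p = 0.00234), and with summed counts it missed the threshold (edgeR adjusted p = 0.0555). Acta1, skeletal alpha-actin, was at 698 RPKM, against 32.9 and 4.96 RPKM in the QSC mice, a log2 fold change of 4.46 ± 0.90 (SE, edgeR adjusted p = 0.00235). Mouse 1 was above mouse 3 in both actins. Tpm2 was at 923 CPM in Pax7-negative iMPCs, against 93.6 and 51.2 CPM in QSC mouse 1 and mouse 3, a log2 fold change of 3.67 ± 0.67 (SE, edgeR adjusted p = 0.00112), and Tpm3 alone of the tropomyosins fell, with 164 CPM in the iMPC library and 1816 and 997 CPM in the QSC mice, a log2 fold change of -3.10 ± 0.80. Summed counts ended the Tpm3 call. Lmod3 (log2 fold change 6.59) also rose, and Acta2 was not called. Of 9 tested myosin light chain genes, 4 rose and 1 fell. Myl1 (log2 fold change 5.58), Myl4 (3.65), Mylpf (5.64) and Mylk4 (4.15) also rose, and Mylk2 (-5.47) also fell.

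Of 8 tested troponin genes, which make the calcium switch of the thin filament, 7 rose, with a list median of 4.61 against both mice and of 4.08 and 6.13 against mouse 1 and mouse 3 alone. Tnnc1, slow troponin C, was at 233 CPM in iMPCs, against 1.19 CPM in mouse 1 and 0.678 CPM in mouse 3, a log2 fold change of 7.96 ± 0.73 (SE, edgeR adjusted p = 4.11e-06). Tnni1, slow troponin I, was at 281 CPM in Pax7-negative iMPCs, against 4.82 and 0.724 CPM in QSC mouse 1 and mouse 3, a log2 fold change of 6.67 ± 0.87 (SE, edgeR adjusted p = 6.30e-05). Tnnt3, fast troponin T, was at 152 CPM in the iMPC library and 10.8 and 4.75 CPM in the QSC mice, a log2 fold change of 4.29 ± 0.65. Slow, fast and embryonic forms were thus all above both mice. The exception was the cardiac Tnni3, at 0.270 CPM in iMPCs, against 0.715 CPM in mouse 1 and 0.724 CPM in mouse 3, and the call of Tnnt2 was lost with DESeq2 and with summed counts. Tnnt1 (log2 fold change 2.54) and Tnnc2 (5.51) also rose.

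Z-disc, M-line and titin genes rose in 13 of 23 tested members and fell in 2. Actn2, the alpha-actinin of the Z-disc, listed here among the actins, was at 271 CPM in Pax7-negative iMPCs, against 3.72 and 1.49 CPM in QSC mouse 1 and mouse 3, a log2 fold change of 6.70 ± 0.73 (SE, edgeR adjusted p = 1.24e-05). Ttn, the giant spring protein, was at 156 CPM in the iMPC library and 18.1 and 5.61 CPM in the QSC mice, a log2 fold change of 3.72 ± 0.67 (SE, edgeR adjusted p = 0.00103). Ankrd2, a stretch-responsive ankyrin protein, was at 83.4 CPM in iMPCs, against 0.620 CPM in mouse 1 and 0.136 CPM in mouse 3, a log2 fold change of 7.78 ± 0.90. Cryab, a small heat shock protein of the Z-disc, fell, with 102 CPM in Pax7-negative iMPCs, against 3617 and 2766 CPM in QSC mouse 1 and mouse 3, a log2 fold change of -4.96 ± 0.93. Flnc, the filamin of muscle, also fell, with 150.5 CPM in the iMPC library and 1727 and 1770.000 CPM in the QSC mice, a log2 fold change of -3.54 ± 0.81. Among 15 tested genes of sarcomere assembly and turnover, 9 rose and 1 fell. Smyd1, a muscle methyltransferase that works with myosin chaperones, was at 45.8 CPM in iMPCs, against 0.238 CPM in mouse 1 and 0.407 CPM in mouse 3, a log2 fold change of 7.12 ± 0.72. Trim63, the ubiquitin ligase MuRF1, had no counts in either mouse and 14.3 CPM in the iMPC library, a level at least 205-fold higher against a floor of 3 counts summed over both mice. Hspb1 fell, as a member of the heat shock genes described further on. Of the Z-disc list, Neb (log2 fold change 1.73), Myom3 (7.05) and Myoz2 (6.98) also rose, and Mybpc1 was not called. Of the assembly list, Unc45b (log2 fold change 2.69) and Klhl41 (4.27) also rose, and Trim54 rose with 3 counts or fewer in QSC.

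Promoters of the genes that rose were searched for motifs known from muscle control regions, and 3 are printed, each for another motif. Of 37 contractile genes called higher, 29 matched a promoter in the RefSeq table (build GRCm38.p6, 250 bases before to 50 after the start). On either strand, CAGCTG, a form of the E-box that myogenic factors bind, was found in 11 of the 29 (37.9%), against 18.3% of the 27025 genes with a promoter in the table, a gene counting if any of its promoters held the motif. A CArG box, the motif of serum response factor, was found in 5 (17.2%, against 1.81% of all), and a MEF2 box in 7 (24.1%, against 3.70% of all). Each motif was searched alone, so a gene can count for several motifs. A match is a description of letters and not evidence of binding. In capitals are the CArG box of Actc1 (chr2:114052826-114053125, minus strand), the MEF2 box of Myh8 (chr11:67276874-67277173, plus strand) and 2 CAGCTG E-boxes of Tnnt2 (chr1:135836084-135836383, plus strand):
Actc1: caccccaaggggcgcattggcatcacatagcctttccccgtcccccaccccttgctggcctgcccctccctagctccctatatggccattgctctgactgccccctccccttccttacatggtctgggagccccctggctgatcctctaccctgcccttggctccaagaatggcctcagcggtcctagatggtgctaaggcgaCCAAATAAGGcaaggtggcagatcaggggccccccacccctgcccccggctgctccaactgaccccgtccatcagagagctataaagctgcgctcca
Myh8: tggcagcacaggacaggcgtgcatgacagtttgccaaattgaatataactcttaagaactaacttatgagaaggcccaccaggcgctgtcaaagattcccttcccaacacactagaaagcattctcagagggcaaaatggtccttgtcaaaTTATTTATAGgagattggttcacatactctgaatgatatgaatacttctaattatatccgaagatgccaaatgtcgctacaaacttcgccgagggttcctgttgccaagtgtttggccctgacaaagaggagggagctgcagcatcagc
Tnnt2: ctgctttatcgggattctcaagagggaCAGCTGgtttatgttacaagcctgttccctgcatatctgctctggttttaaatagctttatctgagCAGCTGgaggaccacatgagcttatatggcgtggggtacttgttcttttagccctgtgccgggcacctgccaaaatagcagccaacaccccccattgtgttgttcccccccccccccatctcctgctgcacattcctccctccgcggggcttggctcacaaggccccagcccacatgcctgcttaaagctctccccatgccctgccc

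Calcium handling genes stood higher too, with 12 of 22 tested members of excitation-contraction coupling higher, none lower and a median of 2.88. Casq2, a calsequestrin that buffers calcium in the sarcoplasmic reticulum, was at 112 CPM in Pax7-negative iMPCs, against 1.43 and 0.995 CPM in QSC mouse 1 and mouse 3, a log2 fold change of 6.53 ± 0.66 (SE, edgeR adjusted p = 7.99e-06). Jph2, which joins the reticulum to the cell membrane, was at 95.4 CPM in the iMPC library and 1.91 and 5.02 CPM in the QSC mice, a log2 fold change of 4.78 ± 0.67 (SE, edgeR adjusted p = 1.16e-04). Cacna1s, the voltage sensor of the T-tubule, had 2 counts over both QSC mice and 12.1 CPM in the iMPC library, 260.5-fold higher with a 95% counting interval of 71.6 to 2159. The calcium pump Atp2a1 was at 401 CPM in iMPCs, against 59.6 CPM in mouse 1 and 7.01 CPM in mouse 3, a log2 fold change of 3.59 ± 0.84, a call that summed counts ended (edgeR adjusted p = 0.0532). Ryr1, the release channel, was at 27.4 CPM in Pax7-negative iMPCs, against 9.20 and 10.3 CPM in QSC mouse 1 and mouse 3, and missed the threshold. Scn4a rose with 3 counts or fewer in QSC.

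At the neuromuscular synapse 7 of 15 tested members rose and 4 fell, while summed counts gave 3 and 1 and DESeq2 5 and 4. Chrng, the acetylcholine receptor subunit of fetal muscle, was at 142 CPM in the iMPC library and 11.9 and 0.678 CPM in the QSC mice, a log2 fold change of 4.50 ± 0.94 (SE, edgeR adjusted p = 0.00313). Chrnb1, the beta subunit shared by fetal and adult receptors, was at 35.97 CPM in iMPCs, against 433 CPM in mouse 1 and 476 CPM in mouse 3, a log2 fold change of -3.66 ± 0.73 (SE, edgeR adjusted p = 0.00223). Musk, the receptor kinase that clusters receptors, was at 29.6 CPM in Pax7-negative iMPCs, against 159.9 and 141 CPM in QSC mouse 1 and mouse 3, a log2 fold change of -2.34 ± 0.67. Thus the fetal subunit was above both mice, while the shared subunit and the kinase were below both. With summed counts the calls of Chrng and Musk were lost. Chrne, the adult subunit, had no counts in any of the 3 libraries. In the dystrophin complex, 6 of 15 tested members rose and 1 fell, against 3 and 1 with summed counts and 4 and 2 with DESeq2. Itgb1bp2 (melusin) was at 32.8 CPM in the iMPC library and 0.286 and 0.271 CPM in the QSC mice, a log2 fold change of 6.86 ± 0.74. Dmd itself fell, at 8.68 CPM in iMPCs, against 119 CPM in mouse 1 and 167 CPM in mouse 3, a log2 fold change of -4.04 ± 0.75, and so did the related Utrn, whose call was lost with summed counts. At the synapse, Chrnd (log2 fold change 3.13) and Erbb3 (4.19) also rose, and Chrna1 was not called. In the dystrophin complex, Sgcd (log2 fold change 4.44) and Cav3 (2.99) also rose, and Sgca and Sgcb were not called.

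Muscle isoforms of energy enzymes rose in 6 of 19 tested members, with none lower. Pgam2, the muscle phosphoglycerate mutase, was at 48.9 CPM in Pax7-negative iMPCs, against 1.19 and 0.407 CPM in QSC mouse 1 and mouse 3, a log2 fold change of 5.93 ± 0.71 (SE, edgeR adjusted p = 2.88e-05). Gys1, muscle glycogen synthase, was at 154 CPM in the iMPC library and 8.06 and 16.3 CPM in the QSC mice, a log2 fold change of 3.66 ± 0.62 (SE, edgeR adjusted p = 6.30e-04). Cox6a2, the striated muscle form of a cytochrome oxidase subunit, was at 13.4 CPM in iMPCs, against 0.429 CPM in mouse 1 and 0.317 CPM in mouse 3, a log2 fold change of 5.16 ± 0.90. Some products of adult fibres did not pass the test. Ckm, muscle creatine kinase, was at 12.1 CPM in Pax7-negative iMPCs, against 5.63 and 1.49 CPM in QSC mouse 1 and mouse 3, above both mice. Myoglobin (Mb) was at 1.89 CPM in the iMPC library and 3.91 and 0.859 CPM in the QSC mice, between the mice. Ckmt2 was not called.

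Matrix and mesenchymal genes rose more often than they fell in Pax7-negative iMPCs. Of 221 tested listed genes, 85 passed the test upward (38.5%, against 12.1% of all tested genes) and 24 downward (10.9%, against 6.57%). Of 11 tested fibrillar collagens, 4 rose and 1 fell. Col1a1, of type I collagen, was at 281 RPKM in Pax7-negative iMPCs, against 3.77 and 2.01 RPKM in QSC mouse 1 and mouse 3. RPKM carries no TMM scaling and gives larger ratios over QSC than the CPM of the genes that follow. Its partner Col1a2 was at 835 CPM in iMPCs, against 71.6 CPM in mouse 1 and 19.2 CPM in mouse 3, a log2 fold change of 4.20 ± 0.77 (SE, edgeR adjusted p = 0.00113). Col3a1, the reticular fibre collagen, was at 4836 CPM in Pax7-negative iMPCs, against 694 and 254 CPM in QSC mouse 1 and mouse 3, a log2 fold change of 3.35 ± 0.77 (SE, edgeR adjusted p = 0.00587). The iMPC library was above both mice in all 3. Col5a1, of the type V collagen that acts on satellite cells through Calcr, was at 504 CPM in the iMPC library and 175 and 216 CPM in the QSC mice, and like Col5a2 missed the threshold. Col27a1, a cartilage-type fibrillar collagen, fell, with 0.777 CPM in iMPCs, against 11.3 CPM in mouse 1 and 11.2 CPM in mouse 3, a log2 fold change of -3.84 ± 1.17. Col24a1 rose with 3 counts or fewer in QSC.

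Basement membrane genes went both ways. Of 23 tested members 9 rose and 4 fell, and the list median of -0.04 was positive instead with summed counts (0.66) and against either mouse alone (0.31 without mouse 1 and 0.21 without mouse 3). Col18a1, of the heparan sulphate proteoglycan collagen XVIII, was at 1782 CPM in Pax7-negative iMPCs, against 45.7 and 27.7 CPM in QSC mouse 1 and mouse 3, a log2 fold change of 5.60 ± 0.72 (SE, edgeR adjusted p = 5.05e-05). Nid1 (nidogen), which links laminin to collagen IV, was at 871 CPM in the iMPC library and 52.3 and 11.03 CPM in the QSC mice, a log2 fold change of 4.78 ± 0.77 (SE, edgeR adjusted p = 3.93e-04). Lamb1, a laminin beta chain, was at 331 CPM in iMPCs, against 17.6 CPM in mouse 1 and 4.07 CPM in mouse 3, a log2 fold change of 4.93 ± 0.74. Collagen IV followed, with Col4a1 at 1771 CPM in Pax7-negative iMPCs, against 271 and 224 CPM in QSC mouse 1 and mouse 3, a log2 fold change of 2.84 ± 0.65. Lama2, the laminin chain of the muscle basement membrane, fell, with 14.4 CPM in the iMPC library and 120.4 and 188 CPM in the QSC mice, a log2 fold change of -3.42 ± 0.73. Lama3, of epithelial laminins, had no counts in the iMPC library and 18.8 and 24.4 CPM in QSC mouse 1 and mouse 3, at least 214-fold lower against a floor of 3 counts. Col4a2 (log2 fold change 3.17) also rose.

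Other collagens, 8 of 19 tested, rose with none lower. Col6a3, of the microfibrillar collagen VI around muscle fibres, was at 196 CPM in iMPCs, against 3.39 CPM in mouse 1 and 1.85 CPM in mouse 3, a log2 fold change of 6.22 ± 0.66 (SE, edgeR adjusted p = 1.22e-05). Col14a1, which binds fibril surfaces, was at 30.1 CPM in Pax7-negative iMPCs, against 0.334 and 0.633 CPM in QSC mouse 1 and mouse 3, a log2 fold change of 5.94 ± 0.93 (SE, edgeR adjusted p = 3.16e-04). The iMPC library was above both mice in each. Col6a1 (log2 fold change 2.11), Col6a2 (2.61) and Col13a1 (7.13) also rose, and Col25a1 rose with 3 counts or fewer in QSC.

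Among fibronectin, elastic fibre and matricellular genes, 13 of 33 tested rose and 6 fell. Fn1, fibronectin, was at 667 CPM in the iMPC library and 10.5 and 8.18 CPM in the QSC mice, a log2 fold change of 6.16 ± 0.71 (SE, edgeR adjusted p = 2.16e-05). Spp1, osteopontin, was at 2519 CPM in iMPCs, against 42.7 CPM in mouse 1 and 7.51 CPM in mouse 3, a log2 fold change of 6.65 ± 0.98 (SE, edgeR adjusted p = 1.83e-04). Tnc, tenascin C of regenerating muscle, was at 344 CPM in Pax7-negative iMPCs, against 37.6 and 5.29 CPM in QSC mouse 1 and mouse 3, a log2 fold change of 4.01 ± 0.82. All were above both mice, and mouse 1 was above mouse 3 in Spp1 and Tnc. Ctgf, a matricellular target of TGF-beta and YAP, went down, with 28.4 CPM in the iMPC library and 547 and 388 CPM in the QSC mice, a log2 fold change of -4.04 ± 0.78. Cyr61, of the same family, was at 208 CPM in iMPCs, against 1929 CPM in mouse 1 and 1497 CPM in mouse 3, a log2 fold change of -3.04 ± 0.80, a call lost with summed counts (edgeR adjusted p = 0.0612). Ltbp4, which tethers latent TGF-beta, was at 38.7 CPM in Pax7-negative iMPCs, against 751 and 729 CPM in QSC mouse 1 and mouse 3, a log2 fold change of -4.26 ± 0.76. Postn (log2 fold change 4.27) and Fbn2 (6.27) also rose, Tnxb (-5.38) also fell, and Sparc was not called.

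Small leucine-rich proteoglycans, which coat collagen fibrils, fell in 6 of 13 tested members (3 with summed counts) and rose in 1, with a median of -2.40. Prelp, which anchors basement membranes, was at 5.03 CPM in the iMPC library and 443 and 386 CPM in the QSC mice, a log2 fold change of -6.36 ± 0.84 (SE, edgeR adjusted p = 6.84e-05). Ogn (mimecan) was at 34.4 CPM in iMPCs, against 229 CPM in mouse 1 and 298 CPM in mouse 3, a log2 fold change of -2.94 ± 0.70 (SE, edgeR adjusted p = 0.00722). Lum (lumican) was the member that rose, with 249.7 CPM in Pax7-negative iMPCs, against 19.7 and 22.3 CPM in QSC mouse 1 and mouse 3, a log2 fold change of 3.57 ± 0.58. Chad (chondroadherin) had 2 counts in the iMPC library, 261-fold lower than in QSC with a 95% counting interval of 71.9 to 2157. Dcn and Bgn, decorin and biglycan, did not pass the test. Ecm2 (log2 fold change -5.61) also fell.

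Enzymes that process collagen rose in 11 of 25 tested members and fell in 1. P4ha3, a prolyl hydroxylase subunit, was at 27.4 CPM in the iMPC library and 0.0954 and 0.0904 CPM in the QSC mice, a log2 fold change of 8.13 ± 0.80 (SE, edgeR adjusted p = 7.16e-06). Adamts2, which trims procollagen, was at 209 CPM in iMPCs, against 11.6 CPM in mouse 1 and 3.98 CPM in mouse 3, a log2 fold change of 4.74 ± 0.69 (SE, edgeR adjusted p = 1.56e-04). The lysyl oxidase relatives Loxl1, Loxl2 and Loxl3 also rose, while Lox itself was at 123 CPM in Pax7-negative iMPCs, against 59.9 and 43.7 CPM in QSC mouse 1 and mouse 3, and missed the threshold. Sulf2 (log2 fold change 5.18) also rose, Pcolce2 (-2.52) also fell, and Serpinh1 and P4ha1 were not called.

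Of 30 tested matrix proteases and inhibitors, 12 rose and 3 fell. Mmp9, a gelatinase, was at 629 CPM in the iMPC library and 1.95 and 3.89 CPM in the QSC mice, a log2 fold change of 7.75 ± 0.71 (SE, edgeR adjusted p = 4.11e-06). Mmp3, stromelysin, was at 209 CPM in iMPCs, against 2.62 CPM in mouse 1 and 1.09 CPM in mouse 3, a log2 fold change of 6.82 ± 0.73 (SE, edgeR adjusted p = 1.22e-05). Adam12, a metalloprotease of regenerating muscle, was at 78.4 CPM in Pax7-negative iMPCs, against 10.1 and 2.13 CPM in QSC mouse 1 and mouse 3, a log2 fold change of 3.68 ± 0.74. Mmp10 had no counts in QSC and 16.4 CPM in the iMPC library, at least 236-fold higher. Plaur, the urokinase receptor, fell, with 35.1 CPM in the iMPC library and 1176 and 209 CPM in the QSC mice, a log2 fold change of -4.30 ± 0.99. Mmp2 and Mmp14, which act as a pair on the cell surface, did not pass the test. Timp1 (log2 fold change 2.31) also rose, Timp4 (-5.03) also fell, and Mmp13 rose with 3 counts or fewer in QSC.

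Integrin subunits rose in 8 of 19 tested members and none fell. Itgb3 was at 41.1 CPM in iMPCs, against 0.477 CPM in mouse 1 and 0 CPM in mouse 3, a log2 fold change of 7.42 ± 1.08 (SE, edgeR adjusted p = 1.74e-04). Itga9, a tenascin and osteopontin receptor subunit, was at 61.3 CPM in Pax7-negative iMPCs, against 1.00 and 0.452 CPM in QSC mouse 1 and mouse 3, a log2 fold change of 6.39 ± 0.77 (SE, edgeR adjusted p = 3.16e-05). Itga6, a laminin receptor subunit, was at 213 CPM in the iMPC library and 10.9 and 4.70 CPM in the QSC mice, a log2 fold change of 4.77 ± 0.65. Itga7, the laminin receptor subunit of muscle, and the common Itgb1 did not pass the test. Itga4 (log2 fold change 7.30) also rose, and Itga5 was not called.

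**Figure D3:**
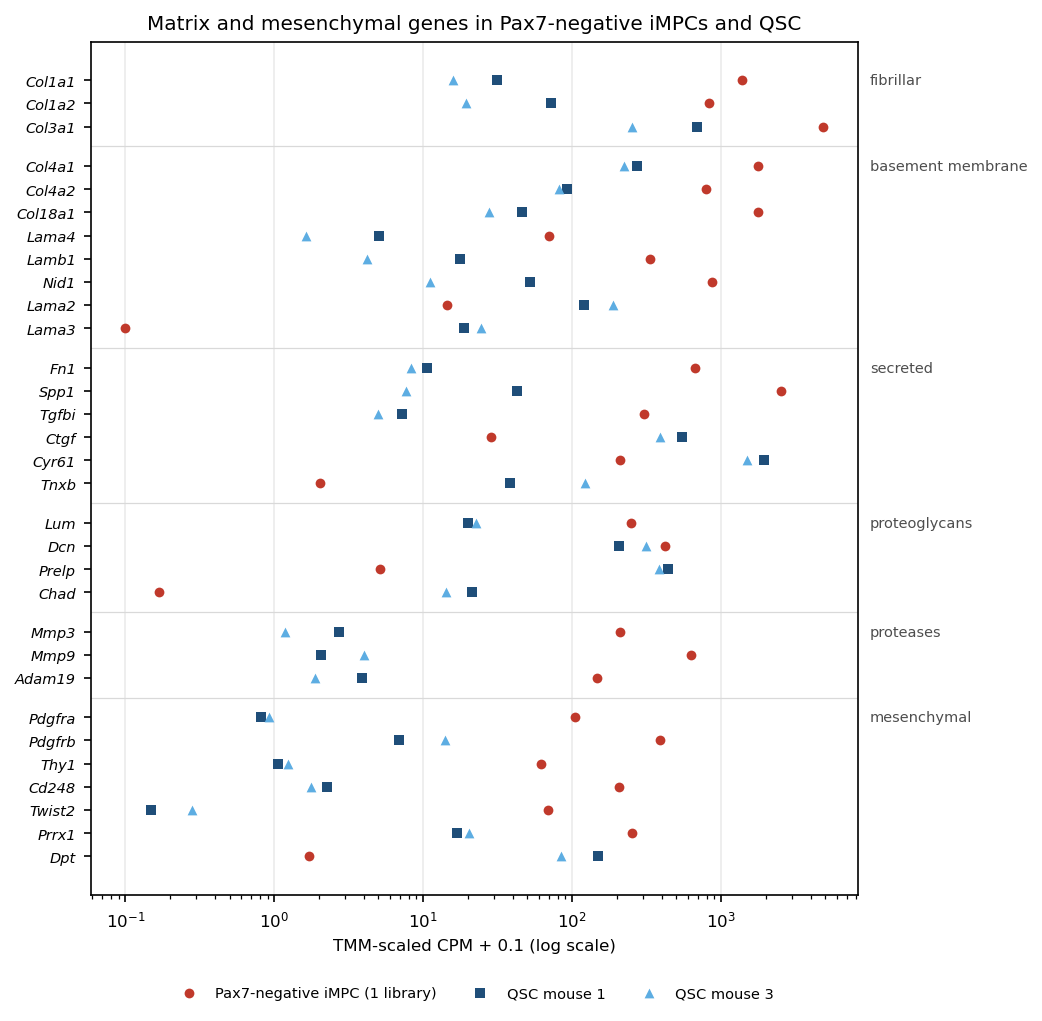
TMM-scaled CPM plus 0.1 on a log axis for matrix and mesenchymal genes, grouped by role, for the Pax7-negative iMPC library (red circle), QSC mouse 1 (dark square) and QSC mouse 3 (light triangle). Col1a1, Fn1, Mmp9, Pdgfra and Twist2 stand to the right in the iMPC library, and Prelp, Ctgf and Dpt to the left.

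Mesenchymal transcription factors rose in 11 of 27 tested members, with none lower and a median of 2.30. Twist2, a helix-loop-helix factor of dermal and limb mesenchyme, was at 68.6 CPM in iMPCs, against 0.0477 CPM in mouse 1 and 0.181 CPM in mouse 3, a log2 fold change of 9.16 ± 0.96 (SE, edgeR adjusted p = 1.00e-05). Prrx1, a homeobox factor of limb mesenchyme, was at 254 CPM in Pax7-negative iMPCs, against 16.8 and 20.1 CPM in QSC mouse 1 and mouse 3, a log2 fold change of 3.78 ± 0.58 (SE, edgeR adjusted p = 2.96e-04). Snai1, a zinc finger repressor of epithelial genes, was at 50.4 CPM in the iMPC library and 1.95 and 3.71 CPM in the QSC mice, a log2 fold change of 4.15 ± 0.68. The QSC mice were close to each other in Prrx1, and the iMPC library was above both in each gene. Tcf4 and Snai2 did not pass the test. Twist1 (log2 fold change 4.71) and Foxf2 (4.21) also rose.

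Fibroblast surface and secreted markers rose in 9 of 22 tested members and fell in 3. Pdgfra, the receptor that marks fibro-adipogenic cells of muscle, was at 105 CPM in iMPCs, against 0.715 CPM in mouse 1 and 0.814 CPM in mouse 3, a log2 fold change of 7.09 ± 0.71 (SE, edgeR adjusted p = 7.72e-06). Thy1 was at 61.5 CPM in Pax7-negative iMPCs, against 0.954 and 1.13 CPM in QSC mouse 1 and mouse 3, a log2 fold change of 5.88 ± 0.74 (SE, edgeR adjusted p = 4.66e-05). Cd248, endosialin, was at 205 CPM in the iMPC library and 2.15 and 1.67 CPM in the QSC mice, a log2 fold change of 6.74 ± 0.66. Dpt (dermatopontin) fell, with 1.62 CPM in iMPCs, against 150.04 CPM in mouse 1 and 83.4 CPM in mouse 3, a log2 fold change of -6.17 ± 0.90. Gsn (gelsolin) fell too, with 222 CPM in Pax7-negative iMPCs, against 3285 and 3410.1 CPM in QSC mouse 1 and mouse 3, a log2 fold change of -3.92 ± 0.88. The summed level of the 22 markers was 3283 CPM in the iMPC library and 5437 and 5471 CPM in the QSC mice. Gsn made most of the QSC sums and little of that of the iMPC library. How far unconverted fibroblasts in the reporter-negative fraction contribute to the matrix genes was not tested. Set beside the embryonic fibroblast library, Pdgfra was at 105 CPM in the iMPC library and 73.8 CPM in fibroblasts, and Thy1 at 61.5 and 33.9 CPM. Col1a1 was at 1377 CPM in the iMPC library and 8924 CPM in fibroblasts. Lsp1 (log2 fold change -2.54) also fell, and S100a4 was not called.

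Metabolic genes moved less than muscle and matrix genes in number of calls: 41 of 340 tested listed genes rose (12.1% of all tested genes did) and 37 fell (6.57% of all tested genes). In glycolysis 9 of 26 tested genes rose, with none lower and a median of 1.28. Tpi1, triose phosphate isomerase, was at 1175 CPM in the iMPC library and 188 and 179 CPM in the QSC mice, a log2 fold change of 2.68 ± 0.61 (SE, edgeR adjusted p = 0.00585). Pfkl, the liver form of phosphofructokinase, was at 442 CPM in iMPCs, against 45.6 CPM in mouse 1 and 25.6 CPM in mouse 3, a log2 fold change of 3.63 ± 0.60 (SE, edgeR adjusted p = 5.49e-04). Ldhb, a lactate dehydrogenase subunit, was at 449 CPM in Pax7-negative iMPCs, against 38.5 and 33.9 CPM in QSC mouse 1 and mouse 3, a log2 fold change of 3.63 ± 0.58. The iMPC library was above both mice in 21 of the 26 genes (46.8% of all tested genes). Gapdh and Aldoa and the hexokinases Hk1 and Hk2 did not pass the test, and Hk2 was at 39.2 CPM in the iMPC library and 62.7 and 169 CPM in the QSC mice. Gpi1 (log2 fold change 2.03) also rose.

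Pyruvate entry and the citric acid cycle had 5 of 33 tested members higher and 1 lower. The share higher, 15.2%, was near the 14.9% of all genes with 5 CPM in the higher group. Pdk1, the kinase that hypoxia raises to close pyruvate dehydrogenase, was at 135 CPM in iMPCs, against 3.91 CPM in mouse 1 and 4.52 CPM in mouse 3, a log2 fold change of 5.00 ± 0.63 (SE, edgeR adjusted p = 4.91e-05). Pdk4, the kinase of fasting and lipid use, was at 9.73 CPM in Pax7-negative iMPCs, against 101 and 125 CPM in QSC mouse 1 and mouse 3, a log2 fold change of -3.54 ± 0.72 (SE, edgeR adjusted p = 0.00269). These kinases of 1 family thus went opposite ways. Idh1, cytosolic isocitrate dehydrogenase, was at 178 CPM in the iMPC library and 22.6 and 13.5 CPM in the QSC mice, a log2 fold change of 3.30 ± 0.60. Genes of the hypoxia response rose in 9 of 19 tested members and fell in 1. Car9, carbonic anhydrase IX, was at 29.9 CPM in iMPCs, against 0.381 CPM in mouse 1 and 0.317 CPM in mouse 3, a log2 fold change of 6.40 ± 0.99. Egln3, a prolyl hydroxylase that marks the HIF factors for loss, was at 104 CPM in Pax7-negative iMPCs, against 5.24 and 2.17 CPM in QSC mouse 1 and mouse 3, a log2 fold change of 4.81 ± 0.68. Hif1a itself was at 594 CPM in the iMPC library and 153 and 192 CPM in the QSC mice, a log2 fold change of 1.78 ± 0.58. Ndrg1, another gene known to respond to hypoxia, fell, with 72.005 CPM in iMPCs, against 1434 CPM in mouse 1 and 1051 CPM in mouse 3, a log2 fold change of -4.11 ± 0.79. Vegfa was at 234 CPM in Pax7-negative iMPCs, against 259.5 and 224 CPM in QSC mouse 1 and mouse 3, with no call. In the citric acid cycle list, Me1 (log2 fold change 1.96) also rose, and Pdha1 was not called. Bnip3 (log2 fold change 3.46) also rose.

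Of 45 tested nuclear genes of oxidative phosphorylation none passed edgeR's test in either direction (1 was higher at an unadjusted p under 0.05), and none with DESeq2. Their log2 fold changes ran from -1.08 for Cycs to 1.32 for Ndufs1, around a median of 0.26. All 15 tested transcripts of the mitochondrial genome lay below both mice (37.1% of all tested genes did), and 8 were called lower. The count of calls was 1 with summed counts and 13 with DESeq2. mt-Co1, a cytochrome oxidase subunit, was at 156 CPM in the iMPC library and 4039.6 and 1812 CPM in the QSC mice, a log2 fold change of -4.23 ± 0.93 (SE, edgeR adjusted p = 0.00448). mt-Atp6, an ATP synthase subunit, was at 719 CPM in iMPCs, against 3008 CPM in mouse 1 and 7195 CPM in mouse 3, a log2 fold change of -2.83 ± 0.93 (SE, edgeR adjusted p = 0.0415). Mouse 3 was above mouse 1 in most of them, although not in mt-Co1. Summed over the list, these transcripts made 4257 CPM in the iMPC library and 17408 and 33736 CPM in the QSC mice. The role of RNA selection or of cell handling in that gap was not tested. Of nuclear genes, Ndufa1, Ndufa2 and Ndufa4 were not called. mt-Cytb (log2 fold change -2.68), mt-Rnr1 (-3.09) and mt-Nd4 (-2.97) also fell, and mt-Nd1 was not called.

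Among lipid genes, fatty acid oxidation and uptake had 4 of 32 tested genes higher and 1 lower. The share higher, 12.5%, was near the 12.1% of all tested genes, and the share lower, 3.1%, was below their 6.57%. Fabp5, a fatty acid binding protein, was at 238 CPM in Pax7-negative iMPCs, against 18.8 and 4.79 CPM in QSC mouse 1 and mouse 3, a log2 fold change of 4.33 ± 0.71 (SE, edgeR adjusted p = 5.06e-04). Fabp4, of adipocytes and endothelium, was at 11.99 CPM in the iMPC library and 204 and 39.1 CPM in the QSC mice, a log2 fold change of -3.34 ± 0.92 (SE, edgeR adjusted p = 0.0177), and mouse 1 was far above mouse 3 in it. Cpt2, of the carnitine shuttle, was at 43.6 CPM in iMPCs, against 5.86 CPM in mouse 1 and 5.79 CPM in mouse 3, a log2 fold change of 2.90 ± 0.62. For fatty acid synthesis, 5 of 21 tested genes rose and 1 fell, and the median of 0.044 turned negative with DESeq2 (-0.072), in the fit on 3 libraries (-0.028) and without mouse 1 (-0.13). Scd2, a stearoyl-CoA desaturase, was at 576 CPM in Pax7-negative iMPCs, against 34.6 and 63.3 CPM in QSC mouse 1 and mouse 3, a log2 fold change of 3.56 ± 0.63. Pnpla2, the lipase that opens lipid droplets, was at 16.9 CPM in the iMPC library and 176 and 208 CPM in the QSC mice, a log2 fold change of -3.50 ± 0.72. Cholesterol synthesis had 1 of 26 tested genes higher, Dhcr7, and 3 lower, and its median of -0.46 was positive with summed counts (0.24) and without mouse 3 (0.20). Of the oxidation list, Acads (log2 fold change 3.90) also rose, and Cpt1a, Cd36 and Ppargc1a were not called. Of the synthesis list, Fads2 (log2 fold change 2.68) and Gpam (2.61) also rose, and Fasn, Scd1 and Srebf1 were not called. Of cholesterol genes, Sc4mol (log2 fold change -2.83) and Ebp (-2.13) also fell, and Srebf2 was not called.

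Amino acid genes went both ways. Of 29 tested genes of serine, one-carbon and amino acid synthesis and their stress control, 5 rose and 9 fell (6 and 4 with summed counts), and the median of 0.10 was negative with DESeq2 (-0.021) and without mouse 3 (-0.18). Asns, asparagine synthetase, was at 121 CPM in iMPCs, against 16.02 CPM in mouse 1 and 11.1 CPM in mouse 3, a log2 fold change of 3.15 ± 0.59 (SE, edgeR adjusted p = 0.00127). Pycr1, of proline synthesis, was at 19.1 CPM in Pax7-negative iMPCs, against 3.86 and 2.44 CPM in QSC mouse 1 and mouse 3, a log2 fold change of 2.60 ± 0.71 (SE, edgeR adjusted p = 0.0165). Atf4, the factor of the integrated stress response, was at 120.3 CPM in the iMPC library and 767 and 1483 CPM in the QSC mice, a log2 fold change of -3.22 ± 0.78. Chac1, which degrades glutathione and is an Atf4 target, was at 4.09 CPM in iMPCs, against 109 CPM in mouse 1 and 119.6 CPM in mouse 3, a log2 fold change of -4.81 ± 0.80. Asns, also known as an Atf4 target, rose, while Atf4, Chac1, Ddit3 and Trib3 fell. Glul, glutamine synthetase, was at 36.1 CPM in Pax7-negative iMPCs, against 574 and 404 CPM in QSC mouse 1 and mouse 3, a log2 fold change of -3.76 ± 0.74. Nucleotide synthesis had 2 of 23 tested genes higher, Cad and Dut, and 1 lower, Prps1. Its shares, 8.70% and 4.35%, lay below those of all tested genes, 12.1% and 6.57%. Aldh1l2 (log2 fold change 3.22) also rose, Cbs (-4.17) also fell, and Phgdh, Psat1 and Psph were not called. Of nucleotide genes, Rrm2 and Tyms were not called.

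Of 32 tested antioxidant and pentose phosphate genes 7 fell and 2 rose, and the median was -0.75, or -0.041 with summed counts. Hmox1, heme oxygenase, was at 45.6 CPM in the iMPC library and 10687 and 2761 CPM in the QSC mice, a log2 fold change of -7.20 ± 1.26 (SE, edgeR adjusted p = 7.79e-04). Gstm1, a glutathione transferase, was at 43.8 CPM in iMPCs, against 1874 CPM in mouse 1 and 894 CPM in mouse 3, a log2 fold change of -4.98 ± 0.89 (SE, edgeR adjusted p = 9.09e-04). Mt2, a metallothionein, was at 79.5 CPM in Pax7-negative iMPCs, against 1568 and 2019 CPM in QSC mouse 1 and mouse 3, a log2 fold change of -4.50 ± 0.84. All were below both mice. Nqo1, which like Hmox1 is a target of Nrf2, rose, with 54.04 CPM in the iMPC library and 4.05 and 5.38 CPM in the QSC mice, a log2 fold change of 3.52 ± 0.61. G6pdx, which opens the pentose phosphate path, rose too, with 95.7 CPM in iMPCs, against 25.4 CPM in mouse 1 and 13.02 CPM in mouse 3, a log2 fold change of 2.32 ± 0.60. The list's summed level was 4761 CPM in the iMPC library and 34478 and 27349 CPM in the QSC mice, and Hmox1 and Gpx3 made most of it in QSC. Pgd and Tkt were not called.

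**Figure D4:**
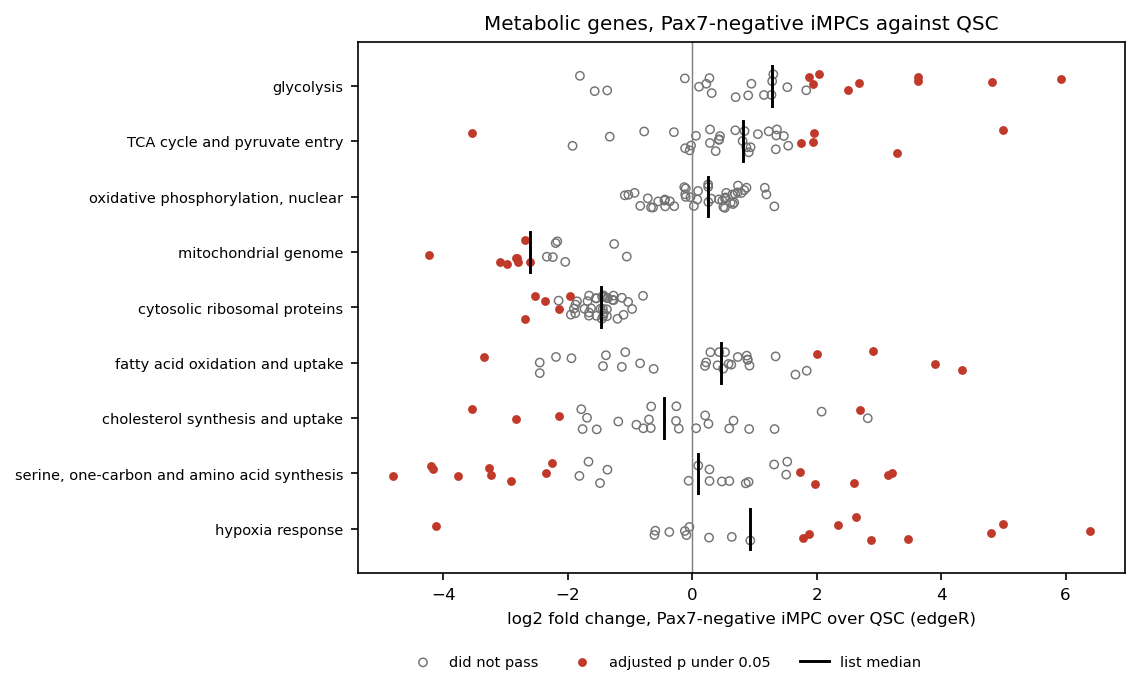
Log2 fold change (Pax7-negative iMPC over QSC) of each gene in 9 metabolic lists, filled where the edgeR adjusted p was under 0.05, with a bar at the list median. Glycolysis and hypoxia genes lie mainly right of 0, nuclear oxidative phosphorylation genes close to 0 with none filled, and mitochondrial transcripts and ribosomal protein genes left of 0.

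Cytosolic ribosomal protein genes lay below both mice in 41 of 41 tested members, with a median of -1.47 and 5 calls. The number of calls was 0 with summed counts and 26 with DESeq2, so it turned on the scaling. Rplp0, of the ribosomal stalk, was at 425 CPM in Pax7-negative iMPCs, against 2479 and 2387 CPM in QSC mouse 1 and mouse 3, a log2 fold change of -2.52 ± 0.79 (SE, edgeR adjusted p = 0.0350). Rpl26 was at 88.05 CPM in the iMPC library and 481 and 652 CPM in the QSC mice, a log2 fold change of -2.69 ± 0.70 (SE, edgeR adjusted p = 0.0132). Rps2 was at 618 CPM in iMPCs, against 843 CPM in mouse 1 and 1292 CPM in mouse 3, and was not called. Such genes have many processed pseudogenes, and how reads were shared among copies is not stated. Rps19 (log2 fold change -2.36) also fell, and Rps3 and Rpl3 were not called.

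Signalling genes were read against the agents in the iMPC medium, which target the TGF-beta receptor, cAMP and GSK3, with ligands and receptors described before targets. Among 348 tested signalling genes 89 rose (25.6%, against 12.1% of all tested genes) and 74 fell (21.3%, against 6.57%). The labels name no culture for the QSC, so agent, culture and cell identity cannot be told apart in this comparison.

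TGF-beta family ligands and receptors rose in 5 of 20 tested members and fell in 1. Mstn, myostatin, a TGF-beta family ligand that limits muscle mass and is made by muscle fibres, was at 279 CPM in Pax7-negative iMPCs, against 1.29 and 0.0452 CPM in QSC mouse 1 and mouse 3, a log2 fold change of 8.71 ± 1.01 (SE, edgeR adjusted p = 2.19e-05). Inhbb, an activin subunit, was at 156 CPM in the iMPC library and 10.4 and 21.2 CPM in the QSC mice, a log2 fold change of 3.30 ± 0.62 (SE, edgeR adjusted p = 0.00142). Fst, follistatin, which binds both ligands, was at 81.5 CPM in iMPCs, against 14.4 CPM in mouse 1 and 9.32 CPM in mouse 3, a log2 fold change of 2.78 ± 0.59. The iMPC library was above both mice in each. Tgfbr2 was at 232 CPM in Pax7-negative iMPCs, against 60.5 and 47.6 CPM in QSC mouse 1 and mouse 3, a log2 fold change of 2.10 ± 0.57, while the type I receptor Tgfbr1, the target of RepSox, was at 139 CPM in the iMPC library and 76.6 and 108 CPM in the QSC mice, with no call. Fstl3 (log2 fold change -3.16) also fell, and Tgfb1 was not called.

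Genes that respond to TGF-beta went both ways, 7 of 20 tested lower and 5 higher, with a median of -1.47. Pmepa1, a negative regulator induced by the pathway, was at 24.3 CPM in iMPCs, against 1733 CPM in mouse 1 and 1499.7 CPM in mouse 3, a log2 fold change of -6.06 ± 0.91 (SE, edgeR adjusted p = 2.26e-04). Skil, the feedback repressor SnoN, was at 10.98 CPM in Pax7-negative iMPCs, against 237 and 248 CPM in QSC mouse 1 and mouse 3, a log2 fold change of -4.47 ± 0.76 (SE, edgeR adjusted p = 6.30e-04). Smad7, the inhibitory SMAD, was at 23.3 CPM in the iMPC library and 19.8 and 38.9 CPM in the QSC mice, and was not called. Tgfbi, a secreted matrix protein, rose, with 304 CPM in iMPCs, against 7.10 CPM in mouse 1 and 4.88 CPM in mouse 3, a log2 fold change of 5.66 ± 0.63. Cdkn2b, a cell cycle inhibitor, rose too, with 86.3 CPM in Pax7-negative iMPCs, against 5.77 and 6.01 CPM in QSC mouse 1 and mouse 3, a log2 fold change of 3.87 ± 0.60. Of the 7 members that fell, Jun and Junb are also counted among the immediate early genes below, and Ctgf among the matrix genes above. Itgb6 (log2 fold change 5.21) and Ltbp2 (4.27) also rose.

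BMP genes rose in 5 of 28 tested members (17.9%, against 12.1% of all tested genes) and fell in 6 (21.4%, against 6.57%). The median of -0.70 was 0.0060 with summed counts. Antagonists were among the rises, although the antagonist Chrdl2, described above among quiescence genes, fell. Grem1, gremlin, had 1 count over both QSC mice and 39.7 CPM in the iMPC library, 1711-fold higher with a 95% counting interval of 307 to 67652. Nog, noggin, was at 9.63 CPM in the iMPC library and 0.143 and 0.181 CPM in the QSC mice, a log2 fold change of 5.85 ± 0.82 (SE, edgeR adjusted p = 1.19e-04). Ligands were among the falls, with Bmp4 at 7.26 CPM in iMPCs, against 231 CPM in mouse 1 and 142 CPM in mouse 3, a log2 fold change of -4.68 ± 0.79 (SE, edgeR adjusted p = 6.30e-04). Targets of the SMAD branch, Id1, Id2 and Id3, did not pass the test. Gdf5, a ligand of joints and denervated muscle, had no counts in QSC and 6.59 CPM in the iMPC library, at least 94.6-fold higher. Smad6 was not called.

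Wnt targets and feedback genes stood higher, 12 of 24 tested rising and 3 falling, with a median of 3.35 (3.22 with genes absent from QSC at their bound). Lef1, the nuclear partner of beta-catenin, was at 11.5 CPM in Pax7-negative iMPCs, against 0.143 and 0.0452 CPM in QSC mouse 1 and mouse 3, a log2 fold change of 6.87 ± 1.13 (SE, edgeR adjusted p = 5.04e-04). Nkd1, a feedback inhibitor, was at 27.5 CPM in the iMPC library and 0.954 and 1.81 CPM in the QSC mice, a log2 fold change of 4.31 ± 0.74 (SE, edgeR adjusted p = 6.71e-04). Notum, a secreted enzyme that inactivates Wnt ligands, was at 16.04 CPM in iMPCs, against 0.954 CPM in mouse 1 and 0.226 CPM in mouse 3, a log2 fold change of 4.76 ± 1.14. All were above both mice. Axin2, the most used reporter gene of the pathway, was at 1.76 CPM in Pax7-negative iMPCs, against 0.477 and 0.769 CPM in QSC mouse 1 and mouse 3, below 5 CPM throughout, and was not called. Lgr5, an R-spondin receptor, was at 15.5 CPM in the iMPC library and 0.906 and 1.13 CPM in the QSC mice, a log2 fold change of 3.92 ± 0.74. Sfrp1, a secreted inhibitor, was at 61.4 CPM in iMPCs, against 1.19 CPM in mouse 1 and 2.13 CPM in mouse 3, a log2 fold change of 5.21 ± 0.68. Frzb, of the same family, was at 66.3 CPM in Pax7-negative iMPCs, against 0.715 and 0 CPM in QSC mouse 1 and mouse 3, a log2 fold change of 7.53 ± 1.15. Myc and Znrf3, also known as targets, fell, with Myc at 127 CPM in the iMPC library and 4093 and 1754 CPM in the QSC mice, a log2 fold change of -4.53 ± 0.94. Dkk2 (log2 fold change 5.89) also rose.

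Wnt ligands, receptors and R-spondins rose in 11 of 29 tested members and fell in 2. Wnt5a, a ligand of the beta-catenin-independent branch, was at 69.4 CPM in iMPCs, against 0.143 CPM in mouse 1 and 1.31 CPM in mouse 3, a log2 fold change of 6.56 ± 0.87 (SE, edgeR adjusted p = 6.81e-05). Ror2, its receptor kinase, was at 29.4 CPM in Pax7-negative iMPCs, against 2.48 and 1.54 CPM in QSC mouse 1 and mouse 3, a log2 fold change of 3.87 ± 0.72 (SE, edgeR adjusted p = 0.00127). Ror1, the close relative of Ror2, was at 6.75 CPM in the iMPC library and 204 and 258 CPM in the QSC mice, a log2 fold change of -5.10 ± 0.79. The pair of receptor kinases thus went opposite ways, each with the iMPC library outside the range of the mice. Fzd1 and Fzd2 also rose, and Fzd5 fell, with 1.42 CPM in iMPCs, against 20.03 CPM in mouse 1 and 10.1 CPM in mouse 3, a log2 fold change of -3.40 ± 1.04. Rspo3 (log2 fold change 3.93) and Fzd6 (5.34) also rose, and Wnt4 was not called.

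Notch genes rose in 5 of 25 tested members (20%, against 12.1% of all tested genes), and edgeR called none lower. Dlk1, a membrane protein related to Notch ligands and an imprinted gene, was at 274 CPM in Pax7-negative iMPCs, against 8.96 and 5.83 CPM in QSC mouse 1 and mouse 3, a log2 fold change of 5.21 ± 0.62 (SE, edgeR adjusted p = 2.97e-05). Jag2, a Notch ligand, was at 27.4 CPM in the iMPC library and 4.48 and 2.40 CPM in the QSC mice, a log2 fold change of 2.99 ± 0.63 (SE, edgeR adjusted p = 0.00350). Dner, a neuronal ligand of Notch, had no counts in QSC and 16.8 CPM in the iMPC library, at least 241-fold higher. The receptors did not pass the test, and Notch3 was at 92.4 CPM in iMPCs, against 118 CPM in mouse 1 and 309.97 CPM in mouse 3. Lfng (log2 fold change 3.86) also rose, and Notch1 and Dll1 were not called.

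**Figure D5:**
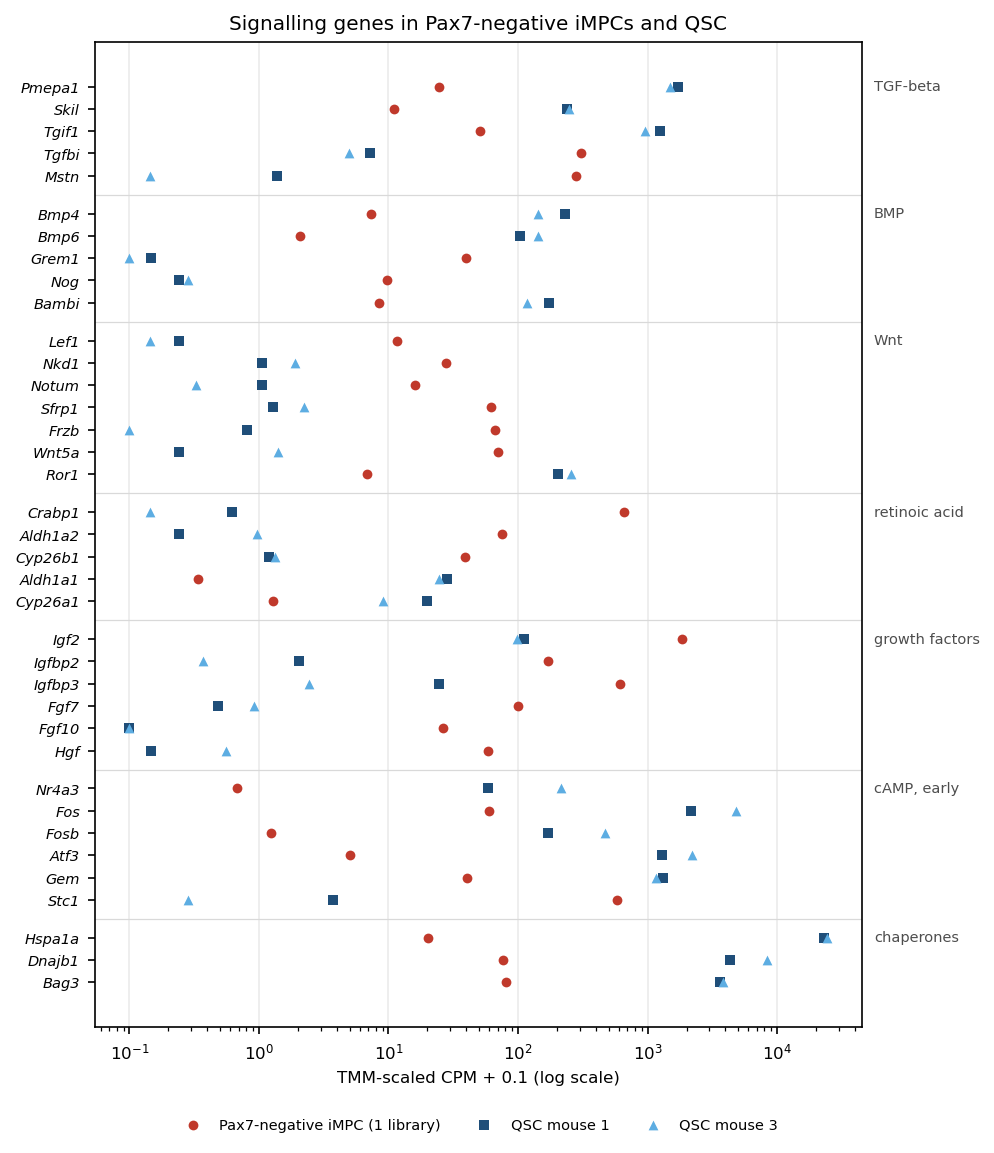
TMM-scaled CPM plus 0.1 on a log axis for signalling genes, grouped by pathway, for the Pax7-negative iMPC library (red circle), QSC mouse 1 (dark square) and QSC mouse 3 (light triangle). Mstn, Lef1, Wnt5a, Stc1 and Igf2 stand to the right in the iMPC library, and Pmepa1, Fos, Nr4a3 and Hspa1a to the left.

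Genes that respond to cAMP stood lower in 9 of 23 tested members (39.1%, against 6.57% of all tested genes) and higher in 4 (17.4%, against 12.1%). Nr4a3, a nuclear receptor and CREB target, was at 0.574 CPM in Pax7-negative iMPCs, against 58.2 and 213 CPM in QSC mouse 1 and mouse 3, a log2 fold change of -7.87 ± 1.11 (SE, edgeR adjusted p = 1.24e-04). Pde4b, a phosphodiesterase that degrades cAMP, was at 207 CPM in the iMPC library and 2482 and 2111 CPM in the QSC mice, a log2 fold change of -3.47 ± 0.81 (SE, edgeR adjusted p = 0.00654). Crem, whose short form represses CREB targets, was at 39.5 CPM in iMPCs, against 166 CPM in mouse 1 and 189.6 CPM in mouse 3, a log2 fold change of -2.17 ± 0.66, a call lost with summed counts. Sik1, a kinase induced by CREB, was at 111 CPM in Pax7-negative iMPCs, against 157 and 177 CPM in QSC mouse 1 and mouse 3, with no call. The members that rose were Stc1, Areg, Prkar2b and Pde4a. Stc1, stanniocalcin, was at 577 CPM in the iMPC library and 3.62 and 0.181 CPM in the QSC mice, a log2 fold change of 8.25 ± 1.04. Areg, amphiregulin, was at 57.5 CPM in iMPCs, against 6.53 CPM in mouse 1 and 5.29 CPM in mouse 3, a log2 fold change of 3.28 ± 0.71. Prkar2b, a regulatory subunit of protein kinase A, was at 99.7 CPM in Pax7-negative iMPCs, against 11.8 and 10.1 CPM in QSC mouse 1 and mouse 3, a log2 fold change of 3.18 ± 0.58. Of the 9 members that fell, Fos, Nr4a1 and Dusp1 are immediate early genes as well, and so is Nr4a3, of the same family as Nr4a1. The falls of this list thus overlap those of the immediate early genes below. Gem (log2 fold change -4.95) also fell.

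Growth factor genes rose more than they fell. In the FGF list 8 of 25 tested rose and none fell with edgeR, while DESeq2 called 6 higher and 2 lower. Fgf7, which acts on epithelia, was at 100.5 CPM in the iMPC library and 0.381 and 0.814 CPM in the QSC mice, a log2 fold change of 7.38 ± 0.74 (SE, edgeR adjusted p = 7.72e-06). Etv1, an ETS factor downstream of FGF, was at 69.98 CPM in iMPCs, against 1.72 CPM in mouse 1 and 1.90 CPM in mouse 3, a log2 fold change of 5.27 ± 0.65 (SE, edgeR adjusted p = 3.95e-05). Dusp6, the phosphatase of ERK feedback, was at 291 CPM in Pax7-negative iMPCs, against 98.03 and 46.7 CPM in QSC mouse 1 and mouse 3, a log2 fold change of 2.01 ± 0.61. Spry1, the feedback inhibitor that satellite cells use to return to quiescence, was at 147 CPM in the iMPC library and 183 and 321 CPM in the QSC mice, not past the test. The IGF list had 9 of 18 tested members higher and 1 lower. Igf2, the fetal growth factor, was at 1833 CPM in iMPCs, against 112 CPM in mouse 1 and 98.1 CPM in mouse 3, a log2 fold change of 4.13 ± 0.67. Igfbp3 was at 616 CPM in Pax7-negative iMPCs, against 24.4 and 2.35 CPM in QSC mouse 1 and mouse 3, a log2 fold change of 5.53 ± 0.92. Igf1r was at 67.1 CPM in the iMPC library and 5.10 and 13.9 CPM in the QSC mice, a log2 fold change of 2.82 ± 0.65. Irs2, the receptor substrate, fell, with 45.8 CPM in iMPCs, against 465 CPM in mouse 1 and 827 CPM in mouse 3, a log2 fold change of -3.82 ± 0.77. Its relative Irs1 rose, with 28.8 CPM in Pax7-negative iMPCs, against 2.57 and 5.47 CPM in QSC mouse 1 and mouse 3, a log2 fold change of 2.84 ± 0.63. In the FGF list, Fgfr1 and Fgfr4 were not called. In the IGF list, Igfbp2 (log2 fold change 7.26) also rose, and Igf1 was not called.

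Among receptor tyrosine kinases and ligands of the PDGF, EGF and HGF families, 8 of 21 tested rose and 2 fell. Hgf, the ligand of Met, was at 58.4 CPM in the iMPC library and 0.0477 and 0.452 CPM in the QSC mice, a log2 fold change of 7.83 ± 1.01 (SE, edgeR adjusted p = 5.51e-05). Ereg, epiregulin, was at 105 CPM in iMPCs, against 3.34 CPM in mouse 1 and 1.54 CPM in mouse 3, a log2 fold change of 5.42 ± 0.71 (SE, edgeR adjusted p = 6.13e-05). Pdgfrb was at 388 CPM in Pax7-negative iMPCs, against 6.77 and 13.8 CPM in QSC mouse 1 and mouse 3, a log2 fold change of 5.24 ± 0.65. Hbegf, an EGF family ligand, fell, with 10.5 CPM in the iMPC library and 173 and 134 CPM in the QSC mice, a log2 fold change of -3.87 ± 0.74. YAP and TEAD genes had 3 of 19 tested higher and 3 lower (15.8% each, against 12.1% and 6.57% of all tested genes). Their median was -0.046 (0.67 with summed counts). Tead4 was at 22.3 CPM in iMPCs, against 1.29 CPM in mouse 1 and 0.136 CPM in mouse 3, a log2 fold change of 4.97 ± 0.97, while the targets Ctgf and Cyr61 were among the falls. Egfr was not called. Of the YAP list, Tead2 (log2 fold change 3.63) and Ajuba (2.95) also rose, Vgll4 (-3.20) also fell, and Ankrd1 was not called.

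The retinoic acid list had 10 of 17 tested members higher and 2 lower, with a median of 2.68. Crabp1, a cellular retinoic acid binding protein, was at 653 CPM in Pax7-negative iMPCs, against 0.524 and 0.0452 CPM in QSC mouse 1 and mouse 3, a log2 fold change of 11.15 ± 0.94 (SE, edgeR adjusted p = 3.47e-06). Aldh1a2, which makes retinoic acid in the embryo, was at 75.6 CPM in the iMPC library and 0.143 and 0.859 CPM in the QSC mice, a log2 fold change of 7.21 ± 0.94 (SE, edgeR adjusted p = 5.86e-05). Aldh1a1, which makes it in adult tissues, was at 0.236 CPM in iMPCs, against 28.2 CPM in mouse 1 and 24.4 CPM in mouse 3, a log2 fold change of -6.77 ± 1.11. Of the enzymes that clear it, Cyp26b1 rose and Cyp26a1 fell. Rarb (log2 fold change 2.35) and Crabp2 (3.65) also rose.

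Immediate early genes were lower in Pax7-negative iMPCs in 24 of 30 tested members, with none higher and a median of -3.72. Fos was at 59.9 CPM in Pax7-negative iMPCs, against 2174 and 4831 CPM in QSC mouse 1 and mouse 3, a log2 fold change of -5.87 ± 1.02 (SE, edgeR adjusted p = 7.33e-04). Atf3 was at 4.96 CPM in the iMPC library and 1295 and 2198 CPM in the QSC mice, a log2 fold change of -8.46 ± 1.04 (SE, edgeR adjusted p = 3.89e-05). Egr1 was at 325 CPM in iMPCs, against 6629.6 CPM in mouse 1 and 9032 CPM in mouse 3, a log2 fold change of -4.59 ± 1.01. Their summed level was 3275 CPM in the iMPC library and 44028 and 47191 CPM in the QSC mice. Egr3 and Rhob were not called, and Rhob was at 81.2 CPM in Pax7-negative iMPCs, against 44.8 and 90.7 CPM in QSC mouse 1 and mouse 3. With summed counts 15 of the 30 were called lower. Some of these genes are also induced by cAMP, TGF-beta or serum, and how much cell isolation contributed to the QSC levels was not tested. Fosb (log2 fold change -8.11) also fell.

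Heat shock and chaperone genes fell in 12 of 16 tested members, and all 16 lay below both mice, with a median of -3.88. Together they held 0.709% of the counts of the iMPC library and 8.24% and 10.5% of those of QSC mouse 1 and mouse 3. Hspa1a, an inducible HSP70, was at 20.1 CPM in the iMPC library and 22959.8 and 24292 CPM in the QSC mice, a log2 fold change of -10.20 ± 1.51 (SE, edgeR adjusted p = 1.97e-04), and is near-identical to Hspa1b, so the counts of each are uncertain. Hsph1, a partner of HSP70, was at 122 CPM in iMPCs, against 3373 CPM in mouse 1 and 4312 CPM in mouse 3, a log2 fold change of -4.97 ± 0.94 (SE, edgeR adjusted p = 0.00148). Hspa8, the constitutive HSP70, was at 1532 CPM in Pax7-negative iMPCs, against 25149 and 22093 CPM in QSC mouse 1 and mouse 3, a log2 fold change of -3.95 ± 1.14, a call lost with summed counts (edgeR adjusted p = 0.0585). Hspd1 and Hsf1 were not called. With summed counts 7 of the 16 were called lower. Dnajb1 (log2 fold change -6.36) also fell.

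Promoters of these falling genes were searched in the same way, and one of each group is printed for its motif. Of the 24 immediate early genes called lower, 19 matched a promoter. The cAMP response element TGACGTCA was found in 3 (15.8%, against 2.03% of all such genes) and a CArG box in 2 (10.5%, against 1.81%). The AP-1 motif TGANTCA was in none (8.97% of all). Muscle motifs were found here too, CAGCTG in 5 (26.3%, against 18.3% of all) and a MEF2 box in 2 (10.5%, against 3.70%). Of the 12 heat shock genes called lower, 10 matched, and the heat shock element, 3 units of GAA in alternating direction, was found in 2 (20%, against 0.662% of all). The AP-1 motif and CAGCTG were each found in 2 of the 10 as well (20%, against 8.97% and 18.3% of all). In capitals are the cAMP response element of Dusp1 (chr17:26508423-26508722, minus strand), the phosphatase at 81.8 CPM in the iMPC library and 1691 and 1358 CPM in the QSC mice, and the heat shock element of Hsph1, read on the opposite strand (chr5:149636287-149636586, minus strand), both from RefSeq on GRCm38.p6:
Dusp1: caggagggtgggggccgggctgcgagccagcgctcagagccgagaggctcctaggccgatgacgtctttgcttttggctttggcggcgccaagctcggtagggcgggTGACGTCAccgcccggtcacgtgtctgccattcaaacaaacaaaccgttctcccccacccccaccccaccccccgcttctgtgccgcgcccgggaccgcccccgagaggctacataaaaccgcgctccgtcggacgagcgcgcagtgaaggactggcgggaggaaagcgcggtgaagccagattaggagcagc
Hsph1: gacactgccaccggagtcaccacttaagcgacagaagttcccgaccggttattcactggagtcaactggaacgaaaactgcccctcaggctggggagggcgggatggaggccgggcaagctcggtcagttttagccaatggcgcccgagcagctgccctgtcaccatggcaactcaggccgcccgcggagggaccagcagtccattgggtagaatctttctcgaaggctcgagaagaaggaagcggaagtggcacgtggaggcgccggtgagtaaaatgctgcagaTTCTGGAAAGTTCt

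Interferon and antigen presentation genes fell in 6 of 21 tested members, with none higher by edgeR or DESeq2. The number lower was 2 with summed counts and 10 both with DESeq2 and in the fit on 3 libraries. H2-D1, a class I antigen chain, was at 46.5 CPM in iMPCs, against 3384 CPM in mouse 1 and 1995 CPM in mouse 3, a log2 fold change of -5.85 ± 0.96 (SE, edgeR adjusted p = 4.91e-04). B2m, its light chain, was at 147 CPM in Pax7-negative iMPCs, against 1050.4 and 1193 CPM in QSC mouse 1 and mouse 3, a log2 fold change of -2.93 ± 0.74 (SE, edgeR adjusted p = 0.0108), a call lost with summed counts. Among chemokines and cytokines 5 of 22 tested rose and 4 fell. Il33, an alarmin of stromal cells, was at 544 CPM in the iMPC library and 10.3 and 5.29 CPM in the QSC mice, a log2 fold change of 6.12 ± 0.67. Cxcl1, a neutrophil chemokine, was at 96.6 CPM in iMPCs, against 4288 CPM in mouse 1 and 978 CPM in mouse 3, a log2 fold change of -4.77 ± 1.04. Tnfrsf12a, the TWEAK receptor of injured muscle, was at 63.9 CPM in Pax7-negative iMPCs, against 4153 and 2912 CPM in QSC mouse 1 and mouse 3, a log2 fold change of -5.79 ± 0.98. Class I chains have close copies, so single genes of that family are uncertain. Of the interferon list, Irf1 (log2 fold change -2.19) and H2-K1 (-5.43) also fell. Of chemokines and cytokines, Tnfrsf11b (log2 fold change 6.19) and Cxcl5 (5.26) also rose, Cxcl2 (-5.94) and Cxcl10 (-5.00) also fell, and Cxcl12, Ccl2 and Il6 were not called.

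Mitosis genes stood higher in Pax7-negative iMPCs, and the QSC mice differed in them. Of 28 tested mitosis genes 18 rose (64.3%, against 12.1% of all tested genes) and none fell. All 28 lay above both mice (46.8% of all tested genes did), but 26 of the 28 were 4-fold or more higher in mouse 1 than in mouse 3. The list median was 2.75 against both mice, 1.87 against mouse 1 and 5.93 against mouse 3. Plk1, a mitotic kinase, was at 73.4 CPM in the iMPC library and 3.24 and 0.724 CPM in the QSC mice, a log2 fold change of 5.21 ± 0.75 (SE, edgeR adjusted p = 1.44e-04). Ccnb1, the mitotic cyclin B, was at 142 CPM in iMPCs, against 11.9 CPM in mouse 1 and 0.543 CPM in mouse 3, a log2 fold change of 4.51 ± 0.97 (SE, edgeR adjusted p = 0.00388). Summed over the list the levels were 1907 CPM in the iMPC library and 511 and 49.4 CPM in QSC mouse 1 and mouse 3. The number of calls was 3 with summed counts and 14 with DESeq2, and that of Ccnb1 was lost in both. DNA replication genes had 4 of 26 tested higher and none lower. Their share higher, 15.4%, was near the 14.9% of all genes with 5 CPM in the higher group. Among those called was Mcm2, at 96.7 CPM in Pax7-negative iMPCs, against 25.4 and 7.96 CPM in QSC mouse 1 and mouse 3. Its log2 fold change was 2.54 ± 0.66. Of mitosis genes, Ect2 (log2 fold change 4.25) also rose, and Mki67 was not called. Of replication genes, Chaf1a (log2 fold change 3.21) and Mcm10 (2.39) also rose, and Pcna and Cdc6 were not called.

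Cell cycle inhibitors and cyclins of the D type rose beside the mitotic genes, 7 of 16 tested (12.1% of all tested genes rose) and none lower. Ccnd3, the cyclin D of differentiating muscle, was at 1262 CPM in the iMPC library and 179.8 and 353 CPM in the QSC mice, a log2 fold change of 2.24 ± 0.68 (SE, edgeR adjusted p = 0.0289). Rb1, the retinoblastoma protein, was at 77.2 CPM in iMPCs, against 18.9 CPM in mouse 1 and 16.5 CPM in mouse 3, a log2 fold change of 2.13 ± 0.57 (SE, edgeR adjusted p = 0.0156). Cdkn2a was at 7.94 CPM in Pax7-negative iMPCs, against 0.191 and 0.0904 CPM in QSC mouse 1 and mouse 3, a log2 fold change of 5.78 ± 1.11. Cdkn1a, the inhibitor p21, was at 523 CPM in the iMPC library and 2755 and 2181 CPM in the QSC mice, below both mice but not called by edgeR, and was called lower by DESeq2. A sum over cells cannot say whether inhibitor and mitotic transcripts lay in the same cells. Ccnd2 (log2 fold change 4.10) and Ccng1 (4.04) also rose, and Cdkn1b was not called.

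Imprinted and oncofetal genes rose in 15 of 23 tested members, with none lower by edgeR and a median of 3.18, while DESeq2 called 2 lower. H19, the noncoding partner of Igf2, was at 1233 CPM in iMPCs, against 17.3 CPM in mouse 1 and 28.2 CPM in mouse 3, a log2 fold change of 5.76 ± 0.71 (SE, edgeR adjusted p = 3.74e-05). Hmga2, a chromatin protein of the embryo, was at 125 CPM in Pax7-negative iMPCs, against 0.668 and 0.226 CPM in QSC mouse 1 and mouse 3, a log2 fold change of 8.12 ± 0.76 (SE, edgeR adjusted p = 4.68e-06). Mest, an imprinted mesodermal gene, was at 1479 CPM in the iMPC library and 139.7 and 27.1 CPM in the QSC mice, a log2 fold change of 4.15 ± 0.83. Igf2bp1, which binds Igf2 mRNA in the fetus, had 2 counts over both QSC mice and 75.9 CPM in the iMPC library, 1636-fold higher with a 95% counting interval of 452 to 13515. Meg3, which like H19 is an imprinted noncoding RNA, was at 173 CPM in iMPCs, against 267 CPM in mouse 1 and 1677 CPM in mouse 3, with no call. Hox genes had 2 of 35 tested higher and 1 lower, and their median of 0.65 was -0.20 in the fit on 3 libraries. Their shares, 5.71% and 2.86%, lay below those of all tested genes, 12.1% and 6.57%. Of the 35, 11 reached 5 CPM in the higher group. Hoxc10, of the hindlimb, was the member that fell, at 2.26 CPM in Pax7-negative iMPCs, against 12.1 and 24.5 CPM in QSC mouse 1 and mouse 3, a log2 fold change of -3.01 ± 1.00, a call lost with summed counts. Of 12 pluripotency genes 5 were tested, and all 12 were under 5 CPM in the 3 libraries. Lin28a, an RNA binding protein, was called higher at 1.38 CPM in the iMPC library and no counts in QSC, at least 19.9-fold higher, a call lost with DESeq2-style size factors and with summed counts (edgeR adjusted p = 0.0603 and 0.0674) and given no adjusted p by DESeq2. Sox2 was at 3.51 CPM in the iMPC library and 0.238 and 0 CPM in the QSC mice. Igf2bp3 rose with 3 counts or fewer in QSC. Of Hox genes, Hoxb9 (log2 fold change 4.88) also rose, and Hoxa5 was not called.

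Markers of other cells moved as well and touch the gene groups above. Endothelial markers, 15 tested, were 4-fold or more higher in mouse 1 than in mouse 3 in 12, with sums of 141 CPM in the iMPC library and 397 and 125 CPM in the QSC mice. Their median was -1.64 against both mice and 0.60 without mouse 1, so its direction rested on that mouse, and Cdh5, the defining junction protein, was at 3.04 CPM in iMPCs, against 5.34 CPM in mouse 1 and 0.859 CPM in mouse 3. Erythroid markers summed to 2.09 CPM in the iMPC library and 1301 and 20.5 CPM in the QSC mice, nearly all of it globin with near-identical copies. Immune markers fell in 7 of 15 tested and rose in 1, with sums of 45.9 CPM in the iMPC library and 285 and 170.5 CPM in the QSC mice. Cd74, the class II invariant chain, had 2 counts in the iMPC library and 45.8 and 63.7 CPM in the QSC mice, 814-fold lower with a 95% counting interval of 225 to 6722. Ptprc, the pan-leukocyte antigen CD45, had 1 count there, at 0.0338 CPM in Pax7-negative iMPCs, against 1.62 and 0.995 CPM in QSC mouse 1 and mouse 3. The part of such cells in the genes that fell, Fabp4 and antigen presentation among them, was not tested. Of endothelial markers, Tie1 (log2 fold change -4.69) and Tek (-3.80) also fell, and Pecam1 and Kdr were not called. Of erythroid markers, Hba-a1 (log2 fold change -9.04) and Hbb-bs (-8.82) also fell, Hbb-bt fell to 3 counts or fewer in iMPCs, and Alas2 was not called. Of immune markers, Laptm5 (log2 fold change 3.37) also rose, Lyz2 (-6.31) also fell, C1qb fell to 3 counts or fewer in iMPCs, and Csf1r was not called.

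Pericyte and smooth muscle markers rose in 4 of 12 tested and fell in 1, with Kcnj8, a pericyte potassium channel subunit, at 100.003 CPM in the iMPC library and 3.00 and 3.62 CPM in the QSC mice, a log2 fold change of 4.91 ± 0.68 (SE, edgeR adjusted p = 1.14e-04), and Cspg4 at 1.11 CPM in iMPCs, against 7.15 CPM in mouse 1 and 5.34 CPM in mouse 3. Neuronal markers rose in 6 of 10 tested and fell in 1, with sums of 108 CPM in the iMPC library and 72.7 and 138 CPM in QSC, where Map2 made 67.6 and 136 CPM. Stmn2, of growing axons, was at 40.7 CPM in Pax7-negative iMPCs, against 2.10 and 0.588 CPM in QSC mouse 1 and mouse 3, a log2 fold change of 4.92 ± 0.78 (SE, edgeR adjusted p = 3.56e-04). Elavl3, a defining neuronal RNA binding protein, had no counts in the iMPC library. Schwann cell markers rose in 3 of 10 tested and fell in 3, with Gap43 at 64.3 CPM in the iMPC library and 0.143 and 0.0452 CPM in the QSC mice, a log2 fold change of 9.36 ± 0.94. Epithelial markers rose in 3 of 7 tested, with Krt19 at 33.4 CPM in iMPCs, against 0.0477 CPM in mouse 1 and 0.317 CPM in mouse 3, a log2 fold change of 7.46 ± 0.88, while Epcam was at 0.203 CPM in Pax7-negative iMPCs, against 0.572 and 0 CPM in QSC mouse 1 and mouse 3. Cartilage, bone and tendon markers rose in 1 of 12 tested and fell in 4, with Sox9 at 59.1 CPM in the iMPC library and 374 and 379 CPM in the QSC mice, a log2 fold change of -2.67 ± 0.68; their median of -0.31 was positive with summed counts (0.40) and without mouse 3 (0.052). Adipocyte markers had 1 of 4 tested higher and 1 lower. Whether other cells made part of these signals was not tested. Of pericyte markers, Abcc9 (log2 fold change 3.80) and Mcam (2.50) also rose, and Rgs5 and Myh11 were not called. Of Schwann cell markers, S100b (log2 fold change 4.82) and Ngfr (4.18) also rose, Mbp (-5.24) and Egr2 (-2.03) also fell, and Sox10 was not called. Egr2 is also counted among the immediate early genes that fell. Of adipocyte markers, Car3 (log2 fold change 4.28) also rose, and Pparg was not called. Of skeletal markers, Comp (log2 fold change -5.23) and Alpl (-2.86) also fell, and Runx2 and Sp7 were not called. Of epithelial markers, Krt18 (log2 fold change 5.32) and Krt7 (4.09) also rose, and Krt8 was not called. Of neuronal markers, Tubb3 (log2 fold change 5.62) and Snap25 (6.02) also rose.

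Of all genes with 5 CPM in the higher group, those with the largest fitted rises had no counts, or 1, in QSC. Hand1, a helix-loop-helix factor of heart and limb, was at 45.2 CPM in the iMPC library, at least 649.5-fold higher against 3 counts summed over both mice, and at 1.45 CPM in the Pax7-positive iMPC library and 0.374 CPM in fibroblasts. Htr1b, a serotonin receptor, was at 26.5 CPM, at least 381-fold higher than in QSC, and at 47.3 CPM in Pax7-positive iMPCs and 37.7 CPM in fibroblasts. Fgf10, a mesenchymal growth factor of limb buds, was at 26.4 CPM, at least 379-fold higher than in QSC. Fam110c, Ptprv, Gcnt1, Nefl, Fam220a and Dner, each without counts in QSC, lay between 16.8 CPM (Dner) and 23.8 CPM (Fam110c) in the iMPC library, at least 241-fold to 342-fold higher than in QSC. Prl2c2 (proliferin), with 1 count over both mice and 207 CPM in the iMPC library, cannot be separated from Prl2c3 with certainty.

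The largest fitted falls included genes of several cell types. Zbtb16, the zinc finger protein PLZF, had no counts in the iMPC library and 35.1 and 37.98 CPM in QSC mouse 1 and mouse 3, at least 361-fold lower. Chodl (chondrolectin), a C-type lectin of muscle, was at 0.540 CPM in iMPCs, against 884 CPM in mouse 1 and 1261 CPM in mouse 3, a log2 fold change of -10.94 ± 1.10 (SE, edgeR adjusted p = 7.72e-06). Cys1, a ciliary protein, had no counts in the iMPC library and 11.8 and 30.7 CPM in the QSC mice, at least 212-fold lower. These genes were far above the iMPC library in both mice. Gpihbp1 and Cd300lg, known from endothelium, had no counts in the iMPC library, with 27.2 and 3.84 CPM of Gpihbp1 and 17.8 and 3.07 CPM of Cd300lg in QSC mouse 1 and mouse 3. Fam71a had none either, with 1.53 and 15.2 CPM in the mice, and Ccl21a, a lymphatic chemokine with near-identical copies, 10.01 and 10.6 CPM. Y-linked Uty had no counts in the iMPC library or in QSC mouse 3, so its call rested on mouse 1 alone. The calls of Gpihbp1, Cd300lg and Uty were lost with summed counts.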

How the data were processed

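RNA was selected by poly(A), treated with DNase and made into libraries with a directional kit, per the labels' protocols. The authors deposited raw counts per Ensembl gene for each of the 6 libraries and a table of RPKM values. The deposited RPKM equals the count divided by gene length and by summed counts (largest relative deviation 6.44e-15), so it carries no TMM scaling. STAR 2.3.0, HTSeq 0.6.0, Picard 1.100, edgeR and build mm9 are named, per the submitters' processing notes. The annotation and the strand setting of the counting are not stated in the labels or files, so reads of overlapping or antisense genes and of near-identical copies are uncertain.

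Counts were joined by gene identifier, with symbols from the RPKM table (155 symbols occur more than once). edgeR 4.0.16 and limma 3.58.1 in R 4.3.3 fitted all 6 libraries with 1 coefficient per group, filterByExpr and TMM, and a two-sided quasi-likelihood F test gave Pax7-negative iMPC minus QSC with Benjamini-Hochberg adjustment over 17116 genes. The fit had 1 residual degree of freedom, from the pair of mice, and a biological coefficient of variation of 0.476. Prior degrees of freedom were 16.3, so each gene's error rested mostly on the spread shared across genes. A standard error is the fold change divided by the root of F. The procedure was tested on simulated data. CPM are TMM-scaled. Counting intervals are exact at 95% and floors are 3 counts. Both cover counting error only, since no molecular identifiers are named. Beyond the mouse numbers, the labels do not state whether the mice are separate animals. Xist was high only in QSC mouse 3 and Y-linked Ddx3y only in QSC mouse 1, so these libraries came from different animals.

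The gene lists (67 lists, 1424 entries, 1420 matched, 1379 tested) and the comparison were chosen with earlier results of these data known. The rule for naming genes takes the first 3 of each list, up to 3 with the largest rise and 3 with the largest fall among called genes with 5 CPM, and the 10 largest rises and falls over all genes with protein-coding symbols. Further list members are described with their values, chosen after those were seen, and members given by the rule but not described are named at the end of their group, except a few not reported here. The alternatives were summed-count scaling, DESeq2-style size factors, DESeq2 1.42.0, other filters on low counts, a fit on 3 libraries, each mouse left out, another prior count, fold or minimum level, and RPKM. Promoters are those of RefSeq on GRCm38.p6, and no coordinates on mm9 are given.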

Additional observations from a re-analysis of the deposited data

How the results depend on the processing

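The limits are 1 iMPC library without a replicate, 2 mice that differ in sex-linked genes, cell cycle and endothelial transcripts, and 1 residual degree of freedom. Scaling mattered most. With summed counts edgeR called 2141 genes higher and 329 lower (2065 and 1124 with TMM), and the 4-fold rule gave 3207 higher and 751 lower (1889 and 1323 with TMM). With deposited RPKM that rule gave 3549 higher and 1055 lower, and at 8-fold 1057 and 689. The median over all tested genes, 0.15, was 0.86 with summed counts, 0.030 with DESeq2, 0.034 in the fit on 3 libraries, and 0.18 to 0.22 with 1 mouse left out. The TMM factors, which summed counts leave out, were 1.21 for the iMPC library and 0.717 and 0.763 for QSC mouse 1 and mouse 3. What made these factors differ was not tested. Counts of calls stayed within 1.5 times with DESeq2 (1719 and 1653), DESeq2-style factors (1759 and 1141), no filter (2493 and 1295), a 5 CPM filter (1590 and 1110), the fit on 3 libraries (1778 and 1423) and among genes with 5 CPM in the higher group (1752 and 1062). Without mouse 1 or mouse 3 the 4-fold rule gave 1808 to 2046 genes higher and 1259 to 1479 lower. Of the 398 genes that the naming rule gave, summed counts ended 70 calls and added 6, DESeq2 ended 11 and added 12, and the fit on 3 libraries ended 5 (Neb, Cav3, Rspo3, Mcm10 and Cspg4) and added 6. In none did the direction turn. DESeq2 gave no adjusted p for 2323 genes.

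Some list medians turned sign. Those of basement membrane genes were 0.66 with summed counts, 0.31 without mouse 1 and 0.21 without mouse 3. Those of fatty acid synthesis were -0.072 with DESeq2, -0.028 in the fit on 3 libraries, and -0.13 to 0.48 with 1 mouse left out. Cholesterol genes had 0.24 with summed counts and -0.85 to 0.20 with 1 mouse left out, and cartilage, bone and tendon markers 0.40 and -0.58 to 0.052. Serine and amino acid genes had -0.021 with DESeq2 and -0.18 to 0.28 with 1 mouse left out. BMP genes had 0.0060 and YAP genes 0.67 with summed counts, Hox genes -0.20 in the fit on 3 libraries, and endothelial markers -2.45 to 0.60 with 1 mouse left out. No paired analysis was possible because the iMPC group has 1 library and the mouse numbers of QSC match no iMPC sample. With summed counts fewer list members were called lower: 3 (not 6) of the fibronectin and matricellular genes, 3 (not 7) of the immune markers, 0 (not 4) of the erythroid markers, 2 (not 4) of the basement membrane genes and 1 (not 4) of the skeletal markers. More were called higher: 9 (not 5) of the citric acid cycle genes and 6 (not 2) of the nucleotide synthesis genes.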
